A study of Homo sapiens and Mus musculus with 18 samples.

Results

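Mesothelium-like cells (MLC), described by the submitters as the epithelial form of mesothelium, were made directly from splanchnic mesoderm. They were compared with MesoT at day 18, described as the mesenchymal form, to show how the cultures differ across all genes. The comparison rests on 4 of the 18 samples of the series, 2 libraries of each kind, which were chosen by their labels. Both cultures came from WA09, a single human embryonic stem cell line, and poly-A RNA was sequenced. The labels do not say whether replicates came from separate cultures, so the spread behind the p-values may be technical. It was estimated together with other cultures of the series: MesoT passaged in serum, smooth muscle, MesoT day 22 and MLC made from MesoT. Both cultures shared a chemically defined medium with heregulin, IGF-I, activin A at 10 ng/ml and FGF2 at 8 ng/ml. For splanchnic mesoderm, stem cells were seeded at 50000 cells per cm2, and WNT3a at 25 ng/ml and BMP4 at 100 ng/ml were added for 4 days. MLC were then replated at 150000 cells per cm2 without activin A and FGF2, with retinoic acid at 4 μM and SB431542 at 20 μM, for 18 days in all. SB431542 inhibits the type I receptors of activin and TGF-beta. MesoT stayed in the medium with activin A and FGF2, to which WNT3a at 25 ng/ml, BMP4 at 50 ng/ml and all-trans retinoic acid at 4 μM were added, and no replating is described for it. The cultures thus differ at once in activin A, FGF2, WNT3a, BMP4, the receptor inhibitor and replating at a higher density, and the parts of these cannot be told apart.

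Mesothelium is the epithelial sheet that lines the body cavities and covers the organs within them, and over the heart it is called epicardium. It arises from splanchnic mesoderm, expresses the transcription factor WT1, and can give rise to mesenchymal cells by an epithelial-to-mesenchymal transition, to which TGF-beta signals are known to contribute. Retinoic acid, made by the enzyme ALDH1A2, is a long-known signal of embryonic epicardium.

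MLC had 70679258 and 65709545 gene counts and MesoT day 18 had 28982850 and 22549057. The day 18 samples were also counted in a second table, with 30389378 and 24137663 counts. The countings treat some genes differently: antisense genes took 2848 and 2897 CPM (counts scaled to the library total) in MLC, against 7859 and 9001 CPM in the MesoT day 18 files of 1 library each, and 2358 and 3610 CPM where the second table holds these samples. Genes were therefore called only where edgeR's quasi-likelihood test gave an adjusted p under 0.05 against the day 18 counts of both countings, with the same sign. Mitochondrial genes took 6.84% and 7.76% of counts in MLC and 3.42% and 3.35% in MesoT day 18. Replicates differed by more than 2-fold for 0.782% of genes in MLC and for 16.8% in MesoT day 18.

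Of 19557 genes tested in both countings, 3369 (17.2%) were called, 1589 of them higher in MLC (8.12%) and 1780 lower (9.1%). On the one-library files alone 5666 of 23049 genes passed (24.6%), 1804 higher (7.83%) and 3862 lower (16.8%). With the day 18 counts of the second table, 11070 of 22633 passed (48.9%), 19.8% higher and 29.1% lower. Another 183 genes passed in both countings with opposite signs. The median log2 fold change over all genes tested was -0.03, and 0.14 with the second table. Many calls rest on both MLC libraries: in the one-library files 647 of the 3369 genes passed without MLC replicate 1 and 661 without MLC replicate 2, while 2716 passed without MesoT day 18 replicate 1 and 2745 without replicate 2. In all of these fits 548 passed, 146 higher and 402 lower. Such fits leave 1 library in a group and also change the estimate of spread, to which the close MLC pair contributes. Without MLC replicate 1 or 2, the signed shift of log2 fold changes had a median of 0.00464 and 0.0119 over genes. Rises and falls can cancel in such a median, so it does not show how far single genes moved. Whether a lost call is also a lost difference in level was not tested. In what follows, CPM are normalised, and log2 fold changes are MLC over MesoT day 18 in the one-library files with their standard error. The fold change with the second table is given for called genes where it differed by more than 1.5 times. Where groups are said not to overlap, this describes the 2 libraries of each group and is no further test. The share of all genes without overlap is not given, so lack of overlap adds no support to a difference. For the genes with the highest and lowest changes it was a condition of the choice. List counts stand beside 8.12% higher and 9.1% lower over all genes, and list medians are of the one-library files. Of 14873 protein-coding genes tested in both countings, 1431 were higher (9.62%) and 902 lower (6.06%). The balance of higher and lower genes was thus the other way round among protein-coding genes. For most lists, the one-library counts of higher and lower genes follow with each library left out, with the median where it changed sign or moved by more than 1.5 times.

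Among the called genes with an average log2 CPM of at least 3 and no overlap between the groups, RXRG, HCN4, TECRL, DES, CMYA5 and FOS were in the highest 12. RXRG, a retinoid X receptor that pairs with other nuclear receptors, had 85.6 and 72.8 CPM in MLC, against 1.35 and 1.30 CPM in MesoT day 18. RXRG rose by 5.90 ± 0.24 on the log2 scale (edgeR adjusted p = 0.000376). HCN4, the main channel of the pacemaker current, had 101 and 89.2 CPM in MLC, against 1.74 and 2.19 CPM in MesoT day 18. HCN4 rose by 5.59 ± 0.55 on the log2 scale (edgeR adjusted p = 0.00165). Both genes were nearly silent in the day 18 libraries and abundant in both MLC libraries. TECRL, a membrane enzyme linked to inherited arrhythmia, had 54.4 and 56.5 CPM in MLC, against 0.0322 and 2.43 CPM in MesoT day 18. TECRL rose by 5.501 ± 1.37 on the log2 scale (edgeR adjusted p = 0.0443). DES, the muscle intermediate filament desmin, had 89.2 and 92.1 CPM in MLC, against 3.13 and 1.85 CPM in MesoT day 18. DES rose by 5.18 ± 1.13 on the log2 scale (edgeR adjusted p = 0.0237). CMYA5, a desmin-binding muscle protein, had 58.8 and 49.6 CPM in MLC, against 1.80 and 2.70 CPM in MesoT day 18. CMYA5 rose by 4.59 ± 0.49 on the log2 scale (edgeR adjusted p = 0.00205). The day 18 libraries stood far apart for TECRL and less so for DES and CMYA5, and MLC were even for TECRL and DES. FOS, an immediate early transcription factor, had 282 and 302 CPM in MLC, against 11.9 and 3.52 CPM in MesoT day 18. FOS rose by 5.24 ± 1.44 on the log2 scale (edgeR adjusted p = 0.0457). FOS was higher in day 18 replicate 1 than in replicate 2 and far above both in MLC. Replicates of other cultures stood far apart for FOS. It had 11.5 and 233 CPM in MesoT passaged in serum, and 4.77 and 779 CPM in MLC made from MesoT.

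The other genes of the highest 12 were CDH23, SERPINE3, LGI2, ARHGAP22, ALS2CL and CRMA. CDH23, an atypical cadherin, had 83.1 and 40.8 CPM in MLC, against 2.58 and 1.95 CPM in MesoT day 18. CDH23 rose by 4.77 ± 0.45 on the log2 scale (edgeR adjusted p = 0.00142), and by 3.47 with the second table. SERPINE3, a member of the serine protease inhibitor family, had 63.9 and 62.0 CPM in MLC, against 2.00 and 3.25 CPM in MesoT day 18. SERPINE3 rose by 4.58 ± 0.30 on the log2 scale (edgeR adjusted p = 0.000495). MLC replicate 1 held more CDH23 than replicate 2, while SERPINE3 was even across MLC. LGI2, a secreted leucine-rich repeat protein, and ARHGAP22, a GTPase-activating protein, had log2 fold changes of 4.72 ± 0.66 and 4.68 ± 0.93. ALS2CL had 5.203 ± 1.14 and CRMA 4.51 ± 1.18. Leaving out either MLC library ended the calls of TECRL, FOS, ALS2CL, DES, ARHGAP22 and CRMA in the one-library files, with edgeR adjusted p up to 0.179 and 0.185. RXRG, HCN4, CDH23, LGI2, CMYA5 and SERPINE3 passed without any 1 of the 4 libraries. Leaving out either day 18 library ended the calls of FOS, ALS2CL, DES and CRMA (edgeR adjusted p up to 0.0958 and 0.131).

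**Figure D1:**
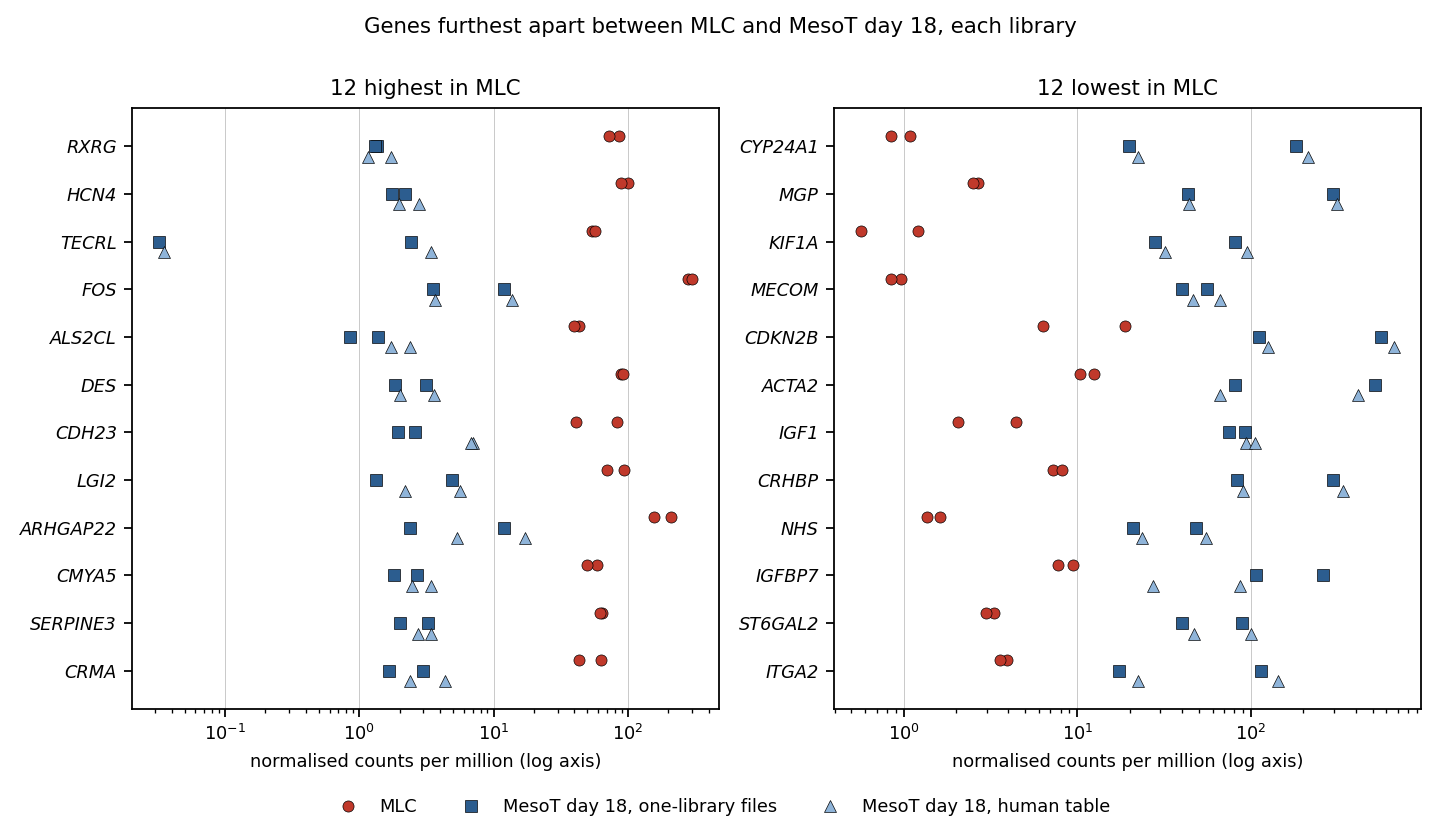
Normalised counts (CPM, log axis) of the 12 called genes with the highest and the 12 with the lowest log2 fold change among those with an average log2 CPM of at least 3 and no overlap between groups, with 1 point per library: MLC, MesoT day 18, and the same day 18 samples in the second table. RXRG sits at 85.6 and 72.8 CPM in MLC against 1.35 and 1.30 CPM in MesoT day 18, and MECOM at 0.965 and 0.840 CPM in MLC against 55.6 and 39.7 CPM in MesoT day 18.

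CYP24A1, MECOM, IGF1, KIF1A, CRHBP and ITGA2 were in the lowest 12 within the same limits. CYP24A1, the enzyme that breaks down active vitamin D, had 1.08 and 0.840 CPM in MLC, against 181 and 19.9 CPM in MesoT day 18. CYP24A1 fell by 6.70 ± 1.27 on the log2 scale (edgeR adjusted p = 0.0152). MECOM, a zinc finger transcription factor, had 0.965 and 0.840 CPM in MLC, against 55.6 and 39.7 CPM in MesoT day 18. MECOM fell by 5.72 ± 0.49 on the log2 scale (edgeR adjusted p = 0.00109). IGF1, a secreted growth factor, had 2.06 and 4.42 CPM in MLC, against 74.4 and 91.9 CPM in MesoT day 18. IGF1 fell by 4.68 ± 0.49 on the log2 scale (edgeR adjusted p = 0.00201). MECOM and IGF1 were at similar levels in both day 18 libraries, while CYP24A1 was several times higher in replicate 1. KIF1A, a kinesin of axonal transport, had 0.568 and 1.21 CPM in MLC, against 80.98 and 27.9 CPM in MesoT day 18. KIF1A fell by 5.93 ± 0.99 on the log2 scale (edgeR adjusted p = 0.00991). CRHBP, the binding protein of corticotropin-releasing hormone, had 7.19 and 8.18 CPM in MLC, against 297 and 82.7 CPM in MesoT day 18. CRHBP fell by 4.63 ± 1.15 on the log2 scale (edgeR adjusted p = 0.0347). ITGA2, a chain of a collagen-binding integrin, had 3.93 and 3.59 CPM in MLC, against 115 and 17.5 CPM in MesoT day 18. ITGA2 fell by 4.13 ± 0.87 on the log2 scale (edgeR adjusted p = 0.0209). For these 3 genes day 18 replicate 1 was again the higher library, and neither MLC library reached replicate 2.

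NHS, an actin regulator, and ST6GAL2, a sialyltransferase, fell as well, with log2 fold changes of -4.54 ± 0.47 and -4.36 ± 0.43. IGFBP7, a secreted IGF-binding protein, had 9.48 and 7.73 CPM in MLC, against 259.5 and 106 CPM in MesoT day 18. IGFBP7 fell by 4.41 ± 0.89 on the log2 scale (edgeR adjusted p = 0.0187), and by 2.41 with the second table. In the second table IGFBP7 stood at 86.5 and 27.2 CPM at day 18, still above MLC. MGP, CDKN2B and ACTA2 completed the lowest 12 and are described with their groups. MECOM, IGF1, NHS and ST6GAL2 passed without any 1 of the 4 libraries. The other 8 lost the call without MLC replicate 1 or 2 (edgeR adjusted p up to 0.223 and 0.208), and ACTA2 and CRHBP also without day 18 replicate 1 (edgeR adjusted p = 0.103 and 0.0637).

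Of 25 genes of mesothelium and epicardium, 8 were higher and 2 lower (32% higher and 8% lower, against 8.12% and 9.1% of all genes), with a median log2 fold change of 0.92. Mesothelial genes had 9 higher and 2 lower in the one-library files, 6 and 4 without day 18 replicate 1, 7 and 1 without day 18 replicate 2, 2 and 1 without MLC replicate 1 and 3 and 1 without MLC replicate 2. WT1, RXRG, HCN4, HAND1 and EZR were fixed as markers of MLC with results of these data known, so their higher levels are a description and no support for the label. In bulk RNA, more cells of a type and more RNA per cell cannot be told apart. WT1, the transcription factor that marks mesothelium, had 217 and 148 CPM in MLC, against 25.9 and 46.2 CPM in MesoT day 18. WT1 rose by 2.34 ± 0.39 on the log2 scale (edgeR adjusted p = 0.00947). TBX18, an epicardial T-box factor, had 219.5 and 219.7 CPM in MLC, against 24.7 and 14.2 CPM in MesoT day 18. TBX18 rose by 3.50 ± 0.87 on the log2 scale (edgeR adjusted p = 0.0352). EZR, ezrin, which links the membrane to actin in microvilli, had 986 and 879 CPM in MLC, against 305 and 281 CPM in MesoT day 18. EZR rose by 1.67 ± 0.20 on the log2 scale (edgeR adjusted p = 0.00330). Every MLC library lay above every day 18 library for these 3 genes. CLDN15, a claudin of tight junctions, had 32.9 and 38.4 CPM in MLC, against 7.80 and 11.2 CPM in MesoT day 18. CLDN15 rose by 1.91 ± 0.29 on the log2 scale (edgeR adjusted p = 0.00690). The basonuclin genes BNC1 and BNC2, which encode zinc finger factors, had log2 fold changes of 1.78 ± 0.50 and 1.59 ± 0.23 (2.40 with the second table). KRT19, a keratin of simple epithelia, had 1.19 ± 0.29, and MUC16, a surface mucin, had 4.44 ± 1.04 (3.54 with the second table) at no more than 4.40 CPM.

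ALDH1A2, described with retinoic acid, was lower, and so was a lubricant of serosal surfaces. PRG4, the proteoglycan lubricin, had 0.0529 and 0.0997 CPM in MLC, against 4.67 and 4.55 CPM in MesoT day 18. PRG4 fell by 5.87 ± 0.50 on the log2 scale (edgeR adjusted p = 0.00103), and by 3.82 with the second table. Other surface proteins of mature mesothelium, UPK3B and MSLN, did not pass. UPK3B, a uroplakin, had 55.9 and 38.1 CPM in MLC, against 15.1 and 34.4 CPM in MesoT day 18. UPK3B did not pass in both countings, at 0.92 ± 0.63 on the log2 scale (edgeR adjusted p = 0.331, and 0.133 with the second table). MSLN, mesothelin, had 3.21 and 2.04 CPM in MLC, against 0.516 and 1.504 CPM in MesoT day 18. MSLN did not pass in both countings, at 1.38 ± 0.71 on the log2 scale (edgeR adjusted p = 0.207, and 0.103 with the second table). Both MLC libraries were above both day 18 libraries for UPK3B in the one-library files, but the gap was small beside the spread of the day 18 libraries. TCF21, a factor of epicardium and coelomic mesenchyme, had 25.5 and 45.3 CPM in MLC, against 25.9 and 7.89 CPM in MesoT day 18. TCF21 did not pass in both countings, at 1.07 ± 0.68 on the log2 scale (edgeR adjusted p = 0.296, and 0.105 with the second table). The groups overlapped for TCF21. UPK1B, another uroplakin, passed in both countings with opposite signs, with log2 fold changes of 3.93 in the one-library files and -1.73 with the second table.

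Of 31 genes of epithelial junctions and polarity, 3 were higher in both countings (9.68%), a share near the 8.12% of all genes. A pair of desmosomal genes was among them, and the median log2 fold change was 0.12. Junction genes had 5 higher and 0 lower in the one-library files, 6 and 0 without day 18 replicate 1, 5 and 1 without day 18 replicate 2 and 3 and 0 without either MLC library. PKP3, a desmosomal plakophilin, had 74.5 and 64.8 CPM in MLC, against 15.1 and 16.7 CPM in MesoT day 18. PKP3 rose by 2.13 ± 0.23 on the log2 scale (edgeR adjusted p = 0.00226). DSG2, a desmosomal cadherin, had 409 and 482 CPM in MLC, against 150.4 and 128 CPM in MesoT day 18. DSG2 rose by 1.68 ± 0.20 on the log2 scale (edgeR adjusted p = 0.00288). For both genes the libraries of a group lay close together and the groups well apart. CDH1, E-cadherin of adherens junctions, had 191 and 205 CPM in MLC, against 142 and 144 CPM in MesoT day 18. CDH1 did not pass in both countings, at 0.47 ± 0.30 on the log2 scale (edgeR adjusted p = 0.303, and 0.0205 with the second table). Of 12 called mesothelial and junction genes, 7 lost the call without MLC replicate 1 and 6 without replicate 2 (edgeR adjusted p up to 0.186 and 0.207). EZR, PRG4, PKP3 and DSG2 passed without any 1 of the 4 libraries. BNC1, TBX18 and MUC16 lost the call without day 18 replicate 1, and TBX18, KRT19 and ALDH1A2 without replicate 2 (edgeR adjusted p up to 0.0717 and 0.103).

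Of 25 mesenchymal genes 6 were lower, with a median log2 fold change of -0.53. Mesenchymal genes had 0 higher and 6 lower in the one-library files, 3 and 8 without day 18 replicate 1, 3 and 9 without day 18 replicate 2, 0 and 1 without MLC replicate 1 and 0 and 2 without MLC replicate 2. FAP, a fibroblast surface protease, had 5.22 and 12.6 CPM in MLC, against 74.6 and 73.8 CPM in MesoT day 18. FAP fell by 3.05 ± 0.46 on the log2 scale (edgeR adjusted p = 0.00712). TNC, the matrix glycoprotein tenascin C, had 78.3 and 96.3 CPM in MLC, against 1443 and 376 CPM in MesoT day 18. TNC fell by 3.38 ± 0.64 on the log2 scale (edgeR adjusted p = 0.0150). ZEB1, a repressor of epithelial genes, had 12.97 and 22.23 CPM in MLC, against 41.7 and 51.7 CPM in MesoT day 18. ZEB1 fell by 1.41 ± 0.29 on the log2 scale (edgeR adjusted p = 0.0189). FAP and ZEB1 were at like levels in both day 18 libraries, while TNC was mostly in replicate 1. CDH2, N-cadherin, had 56.3 and 42.9 CPM in MLC, against 378 and 113 CPM in MesoT day 18. CDH2 fell by 2.31 ± 0.55 on the log2 scale (edgeR adjusted p = 0.0315). THY1, a surface marker of stromal cells, and FOXC2, a forkhead factor of mesenchyme, had log2 fold changes of -1.73 ± 0.44 and -2.59 ± 0.41. Several defining genes of mesenchyme did not pass. VIM, vimentin, had 2395 and 2621 CPM in MLC, against 2129 and 1382 CPM in MesoT day 18. VIM did not pass in both countings, at 0.51 ± 0.31 on the log2 scale (edgeR adjusted p = 0.268, and 0.0874 with the second table). COL1A1, a chain of type I collagen, had 5036 and 6112 CPM in MLC, against 8604 and 1987 CPM in MesoT day 18. COL1A1 did not pass in both countings, at 0.07 ± 0.69 on the log2 scale (edgeR adjusted p = 0.949, and 0.910 with the second table). SNAI1, another repressor of epithelial genes, had 66.4 and 57.3 CPM in MLC, against 7.35 and 28.7 CPM in MesoT day 18. SNAI1 did not pass in both countings, at 1.78 ± 0.60 on the log2 scale (edgeR adjusted p = 0.0805, and 0.0294 with the second table). COL1A1 overlapped between the groups, and VIM and SNAI1 stood higher in both MLC libraries. Leaving out MLC replicate 1 left FAP alone among the 6, and leaving out replicate 2 left FAP and ZEB1 (edgeR adjusted p of the others up to 0.22 and 0.195). THY1 lost the call without day 18 replicate 1 (edgeR adjusted p = 0.0978).

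Of 26 factors of lateral mesoderm and the heart fields, 6 were higher and 3 lower. These factors had 6 higher and 3 lower in the one-library files, 4 and 3 without day 18 replicate 1, 5 and 5 without day 18 replicate 2 and 2 and 0 without either MLC library. HAND1, a bHLH factor of lateral mesoderm, had 319 and 358 CPM in MLC, against 20.2 and 19.9 CPM in MesoT day 18. HAND1 rose by 4.07 ± 0.18 on the log2 scale (edgeR adjusted p = 0.000280). TBX5, a T-box factor of heart and forelimb, had 101 and 87.6 CPM in MLC, against 3.06 and 6.80 CPM in MesoT day 18. TBX5 rose by 4.26 ± 0.41 on the log2 scale (edgeR adjusted p = 0.00155). GATA5, a zinc finger factor of heart and endoderm, had 159 and 144 CPM in MLC, against 29.6 and 37.5 CPM in MesoT day 18. GATA5 rose by 2.17 ± 0.45 on the log2 scale (edgeR adjusted p = 0.0202). HAND1 had nearly equal levels within each group, and no gene of the 3 overlapped between groups. GATA6 had a log2 fold change of 1.17 ± 0.31 and HAND2 of 0.92 ± 0.26, and TBX18 was the other gene that rose. GATA4, a zinc finger factor of the early heart, had 372 and 282 CPM in MLC, against 11.2 and 7.66 CPM in MesoT day 18. GATA4 did not pass in both countings, at 5.12 ± 1.72 on the log2 scale (edgeR adjusted p = 0.0795, and 0.00118 with the second table). Its libraries did not overlap in either counting.

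Among the factors that fell, MEF2C is known from muscle and vessels, FOXC2 from mesenchyme and BARX1 from stomach mesenchyme. MEF2C, a MADS-box factor, had 5.41 and 3.60 CPM in MLC, against 12.4 and 16.6 CPM in MesoT day 18. MEF2C fell by 1.69 ± 0.31 on the log2 scale (edgeR adjusted p = 0.0139). BARX1 stood at 0.0397 and 0.0142 CPM in MLC and at 0.902 and 0.308 CPM in MesoT day 18, a log2 fold change of -4.32 ± 1.03. TBX4, a T-box factor of lung mesenchyme and hindlimb, had 9.73 and 16.7 CPM in MLC, against 109 and 182 CPM in MesoT day 18. TBX4 did not pass in both countings, at -3.46 ± 1.00 on the log2 scale (edgeR adjusted p = 0.0537, and 0.00595 with the second table). PITX1, a homeobox factor of the hindlimb, had 22.0 and 29.8 CPM in MLC, against 249 and 136 CPM in MesoT day 18. PITX1 did not pass in both countings, at -2.90 ± 1.17 on the log2 scale (edgeR adjusted p = 0.124, and 0.000869 with the second table). Both were several times lower in each MLC library. NKX2-5, a homeobox factor of heart muscle, stood at 0.0529 and 0.185 CPM in MLC and 1.71 and 0.273 CPM in MesoT day 18. HAND1 and TBX5 passed without any 1 of the 4 libraries. The other 7 lost the call without MLC replicate 1 or 2 (edgeR adjusted p up to 0.214 and 0.259). HAND2, TBX18 and BARX1 lost it without day 18 replicate 1, and GATA6 and TBX18 without replicate 2 (edgeR adjusted p up to 0.0825 and 0.103).

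Of 25 heart muscle genes 3 were higher and 4 lower (12% higher and 16% lower, against 8.12% and 9.1% of all genes), with a median log2 fold change of 0.52. Heart muscle genes had 3 higher and 4 lower in the one-library files, 3 and 3 without day 18 replicate 1, 4 and 5 without day 18 replicate 2 and 1 and 1 without either MLC library. HCN4 and DES rose as above, and so did a calcium channel. RYR2, the calcium release channel of heart muscle, had 37.0 and 38.9 CPM in MLC, against 5.32 and 10.9 CPM in MesoT day 18. RYR2 rose by 2.23 ± 0.50 on the log2 scale (edgeR adjusted p = 0.0254). TTN, the giant sarcomere protein titin, had 4.00 and 3.67 CPM in MLC, against 25.8 and 47.1 CPM in MesoT day 18. TTN fell by 3.25 ± 0.37 on the log2 scale (edgeR adjusted p = 0.00253). TNNC1, troponin C of heart and slow muscle, had 0.727 and 0.726 CPM in MLC, against 6.90 and 5.43 CPM in MesoT day 18. TNNC1 fell by 3.08 ± 0.75 on the log2 scale (edgeR adjusted p = 0.0332). TTN and TNNC1 were several times lower in both MLC libraries than in either day 18 library. NPPA, the atrial natriuretic peptide, had 2 counts in MLC and 34 in MesoT day 18 (ratio 0.0243, 95% interval of counting error 0.00283 to 0.0949). The second table held 5 and 3 counts at day 18 (ratio 0.121, counting interval 0.0125 to 0.606) for NPPA, a smaller difference. PLN, which restrains the calcium pump of the sarcoplasmic reticulum, had 4 and 0 counts in MLC and 24 and 44 in MesoT day 18. TNNT2, troponin T of heart muscle, had 49.1 and 48.8 CPM in MLC, against 15.4 and 19.1 CPM in MesoT day 18. TNNT2 did not pass in both countings, at 1.505 ± 1.19 on the log2 scale (edgeR adjusted p = 0.394, and 0.00390 with the second table). MYH7 and MYL2, which define ventricular muscle, were at 0 counts in all 4 libraries. HCN4 and TTN passed without any 1 of the 4 libraries, and the other 5 did not without MLC replicate 1 or 2 (edgeR adjusted p up to 0.195 and 0.196). DES and TNNC1 lost the call without day 18 replicate 1, and DES and PLN without replicate 2 (edgeR adjusted p up to 0.0664 and 0.0779).

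The order of HOX genes along their 4 clusters follows the body axis from head to tail. Of 14 genes in paralog groups 1 to 5, 1 was lower, and the median log2 fold change was 0.18. Of 23 genes in groups 6 to 13, 1 was higher and 8 lower, with a median of -3.15. HOX groups 1 to 5 had 0 higher and 1 lower in the one-library files, 0 and 1 without either day 18 library and 0 and 0 without either MLC library. HOX groups 6 to 13 had 1 higher and 10 lower in the one-library files, 0 and 9 without day 18 replicate 1, 0 and 10 without day 18 replicate 2 and 0 and 3 without either MLC library, and the list median was -3.87 without MLC replicate 2. HOXB9, a trunk HOX gene, had 6.98 and 8.65 CPM in MLC, against 52.8 and 31.0 CPM in MesoT day 18. HOXB9 fell by 2.42 ± 0.30 on the log2 scale (edgeR adjusted p = 0.00371). HOXA6, a gene of the HOXA cluster, had 0.410 and 0.954 CPM in MLC, against 6.70 and 6.83 CPM in MesoT day 18. HOXA6 fell by 3.31 ± 0.49 on the log2 scale (edgeR adjusted p = 0.00645). HOXA6 was at equal levels in the day 18 libraries. HOXB13, a gene of the tail end of the HOXB cluster, had 4.32 and 4.87 CPM in MLC, against 63.7 and 17.8 CPM in MesoT day 18. HOXB13 fell by 3.15 ± 0.81 on the log2 scale (edgeR adjusted p = 0.0385). HOXC10, a gene of lumbar and hindlimb level, had 0.145 and 0.114 CPM in MLC, against 10.3 and 0.752 CPM in MesoT day 18. HOXC10 fell by 5.38 ± 1.28 on the log2 scale (edgeR adjusted p = 0.0306). Nearly all HOXC10 counts at day 18 came from replicate 1. HOXC11 had 1 count in MLC and 130 in MesoT day 18 (ratio 0.00318, 95% interval of counting error 7.99e-05 to 0.018). HOXD12 had 0 counts in MLC and 37 in MesoT day 18, all in replicate 2, and did not pass.

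HOXA10, HOXD8 and HOXD11 completed the 8, with log2 fold changes of -3.53 ± 0.87 (-2.68 with the second table), -4.41 ± 0.70 and -4.93 ± 1.14 (-5.63 with the second table). HOXB7, a gene of the middle of the HOXB cluster, had 30.5 and 25.7 CPM in MLC, against 13.4 and 13.9 CPM in MesoT day 18. HOXB7 rose by 1.04 ± 0.29 on the log2 scale (edgeR adjusted p = 0.0492). Its neighbours HOXB6 (-0.25 ± 0.28) and HOXB8 (-0.17 ± 0.37) did not pass. HOXA7 passed in the one-library files (-2.83 on the log2 scale) but not with the second table (-0.76). HOXD4, the gene of groups 1 to 5 that fell, had 1 count in MLC and 38 in MesoT day 18 (ratio 0.0109, 95% interval of counting error 0.000268 to 0.0644). In the second table HOXD4 had 142 and 280 counts at day 18 (ratio 0.00115, counting interval 2.90e-05 to 0.00642), a larger difference. HOXA6 and HOXB9 passed without any 1 of the 4 libraries, and the other 8 did not without MLC replicate 1 or 2 (edgeR adjusted p up to 0.249 and 0.196). HOXB13, HOXC11 and HOXB7 lost the call without day 18 replicate 1, and HOXA10, HOXD11 and HOXB7 without replicate 2 (edgeR adjusted p up to 0.111 and 0.0955).

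**Figure D2:**
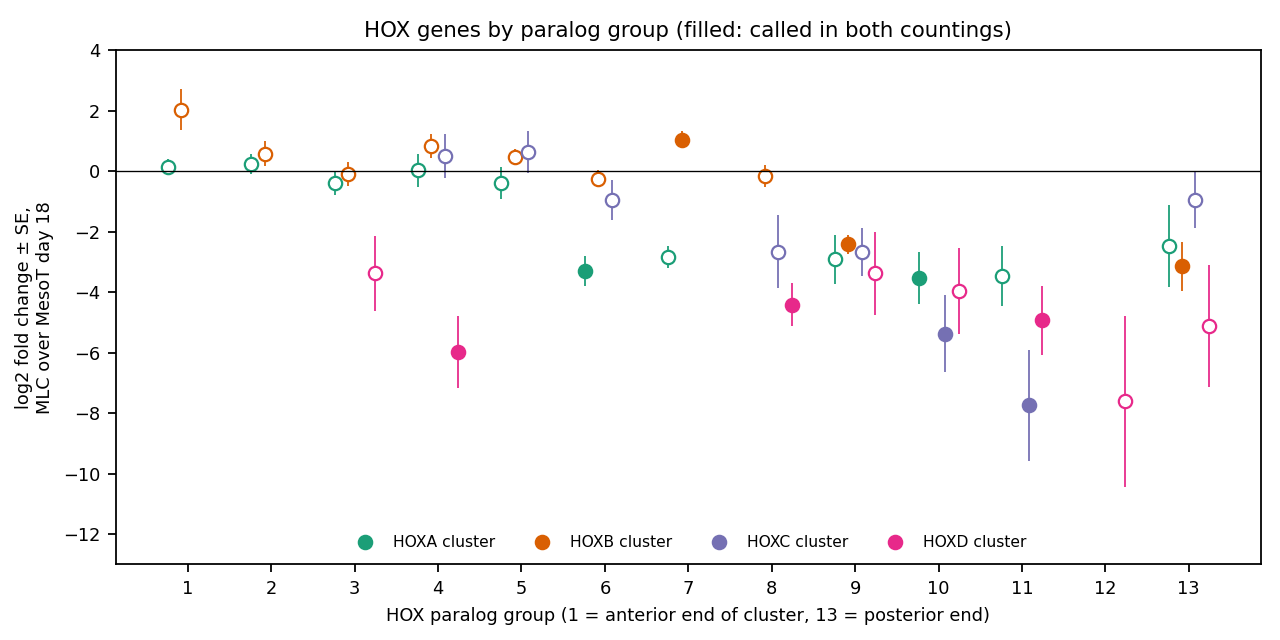
Log2 fold change (MLC over MesoT day 18, one-library files, bars for the standard error) of each tested HOX gene against its paralog group, coloured by cluster and filled where called in both countings; values of HOXC11, HOXD4 and HOXD12, with 0 or 1 count in MLC, are fitted values and no bound. The median is 0.18 in groups 1 to 5 and -3.15 in groups 6 to 13, and every gene of groups 9 to 13 lies below 0.

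MLC were cultured without activin A and with the inhibitor of its receptor. Of 18 genes that respond to activin, nodal or TGF-beta and were tested in both countings, 1 was higher and 7 lower. In the one-library files the median log2 fold change of 22 genes was -1.89, or -1.64 with genes at 0 counts set at their bound. The list had 1 higher and 9 lower in the one-library files, 3 and 8 without day 18 replicate 1, 1 and 11 without day 18 replicate 2 and 0 and 1 without either MLC library, and the list median was -0.92 without day 18 replicate 1. LEFTY2, a nodal inhibitor that nodal itself turns on, had 2 counts in MLC and 198 in MesoT day 18 (ratio 0.00418, 95% interval of counting error 0.000502 to 0.0153). PMEPA1, a feedback inhibitor of TGF-beta receptor signalling, had 12.1 and 13.1 CPM in MLC, against 98.5 and 40.7 CPM in MesoT day 18. PMEPA1 fell by 2.47 ± 0.42 on the log2 scale (edgeR adjusted p = 0.0106). LDLRAD4, a relative of PMEPA1 with the same role, had 1.43 and 2.45 CPM in MLC, against 21.7 and 14.1 CPM in MesoT day 18. LDLRAD4 fell by 3.21 ± 0.38 on the log2 scale (edgeR adjusted p = 0.00306). Neither MLC library reached a day 18 library for these genes. SKIL, a repressor of SMAD signalling, had 94.8 and 81.7 CPM in MLC, against 356 and 178 CPM in MesoT day 18. SKIL fell by 1.60 ± 0.33 on the log2 scale (edgeR adjusted p = 0.0209). NOX4, an oxidase induced by TGF-beta, had 9.01 and 7.31 CPM in MLC, against 19.2 and 20.6 CPM in MesoT day 18. NOX4 fell by 1.29 ± 0.21 on the log2 scale (edgeR adjusted p = 0.00981). NOX4 was even within each group.

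LTBP2, a relative of the latent TGF-beta binding proteins, had 0.476 and 0.456 CPM in MLC, against 64.1 and 6.32 CPM in MesoT day 18. LTBP2 fell by 6.23 ± 1.22 on the log2 scale (edgeR adjusted p = 0.0170). TAGLN, the actin-binding protein transgelin, had 37.3 and 25.1 CPM in MLC, against 922 and 131 CPM in MesoT day 18. TAGLN fell by 4.08 ± 1.06 on the log2 scale (edgeR adjusted p = 0.0393). Day 18 replicate 1 held most of the signal of both genes. COL7A1, the collagen of anchoring fibrils, was the gene that rose, with a log2 fold change of 1.41 ± 0.22. SMAD7, an inhibitory SMAD, had 114 and 91.9 CPM in MLC, against 94.1 and 45.9 CPM in MesoT day 18. SMAD7 did not pass in both countings, at 0.55 ± 0.38 on the log2 scale (edgeR adjusted p = 0.328, and 0.216 with the second table). SMAD7 overlapped between the groups. LDLRAD4 passed without any 1 of the 4 libraries, and the other 7 did not without MLC replicate 1 or 2 (edgeR adjusted p up to 0.186 and 0.221). TAGLN lost the call without day 18 replicate 1 (edgeR adjusted p = 0.0891).

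After day 4, BMP4 is listed only for MesoT. Of 22 genes of the BMP response, 5 were higher and 1 lower, with a median log2 fold change of 1.04. BMP genes had 6 higher and 1 lower in the one-library files, 9 and 1 without either day 18 library and 2 and 1 without either MLC library. SMAD9, a SMAD of the BMP receptors, had 103 and 109 CPM in MLC, against 33.3 and 31.8 CPM in MesoT day 18. SMAD9 rose by 1.71 ± 0.19 on the log2 scale (edgeR adjusted p = 0.00231). SMAD6, an inhibitory SMAD, had 301 and 256 CPM in MLC, against 108 and 39.1 CPM in MesoT day 18. SMAD6 rose by 1.92 ± 0.46 on the log2 scale (edgeR adjusted p = 0.0325). ID2, an inhibitor of bHLH factors, had 295 and 294 CPM in MLC, against 107 and 168 CPM in MesoT day 18. ID2 rose by 1.10 ± 0.28 on the log2 scale (edgeR adjusted p = 0.0365). SMAD9 and ID2 were even across the MLC libraries. No gene of the 3 overlapped between groups, which with 2 libraries per group adds no support beyond the call. HAND1 and ATOH8, a bHLH factor, were the others that rose, ATOH8 by 1.02 on the log2 scale. GREM1, a secreted BMP antagonist, had 0.304 and 0.556 CPM in MLC, against 10.5 and 9.26 CPM in MesoT day 18. GREM1 fell by 4.52 ± 0.35 on the log2 scale (edgeR adjusted p = 0.000754). ID1 and ID3, direct BMP targets, had log2 fold changes of 0.75 ± 0.26 and -0.11 ± 0.29 and did not pass (edgeR adjusted p = 0.0854 and 0.809). HAND1, SMAD9 and GREM1 passed without any 1 of the 4 libraries, and SMAD6, ID2 and ATOH8 did not without MLC replicate 1 or 2 (edgeR adjusted p up to 0.189 and 0.218). ATOH8 lost the call without day 18 replicate 1 (edgeR adjusted p = 0.0737).

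Of 20 genes that report FGF and ERK signalling, 1 was higher and 5 lower, with a median log2 fold change of -0.80. FGF and ERK genes had 2 higher and 5 lower in the one-library files, 4 and 6 without day 18 replicate 1, 1 and 11 without day 18 replicate 2 and 0 and 0 without either MLC library, and the list median was -0.13 without day 18 replicate 1. ETV4, an ETS factor induced by FGF, had 1.11 and 1.41 CPM in MLC, against 18.08 and 6.97 CPM in MesoT day 18. ETV4 fell by 3.31 ± 0.50 on the log2 scale (edgeR adjusted p = 0.00696). ETV5, a related ETS factor, had 9.78 and 10.4 CPM in MLC, against 169.9 and 31.6 CPM in MesoT day 18. ETV5 fell by 3.32 ± 0.75 on the log2 scale (edgeR adjusted p = 0.0264). Replicate 1 was the higher day 18 library for both. The feedback inhibitors SPRY4, SPRED1 and SPRED3 had log2 fold changes of -2.49 ± 0.50, -0.72 ± 0.15 and -2.01 ± 0.50. FLRT3, a transmembrane partner of FGF receptors, had 239 and 281 CPM in MLC, against 76.5 and 149 CPM in MesoT day 18. FLRT3 rose by 1.20 ± 0.33 on the log2 scale (edgeR adjusted p = 0.0466). EGR1, an immediate early factor downstream of ERK, had 699 and 671 CPM in MLC, against 43.9 and 6.80 CPM in MesoT day 18. EGR1 did not pass in both countings, at 4.76 ± 1.24 on the log2 scale (edgeR adjusted p = 0.0402, and 0.0575 with the second table). Its libraries did not overlap, but the day 18 libraries stood several times apart.

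For the WNT response 2 of 22 genes were higher and 2 lower (9.09% higher and 9.09% lower), shares near those of all genes, with a median log2 fold change of -0.26. WNT genes had 2 higher and 2 lower in the one-library files, 3 and 2 without day 18 replicate 1, 1 and 5 without day 18 replicate 2, 0 and 0 without MLC replicate 1 and 1 and 0 without MLC replicate 2, and the list median was 0.06 without day 18 replicate 1. RNF43, which removes WNT receptors from the surface, had 76.4 and 71.5 CPM in MLC, against 23.2 and 26.4 CPM in MesoT day 18. RNF43 rose by 1.58 ± 0.22 on the log2 scale (edgeR adjusted p = 0.00510). DKK1, a secreted WNT antagonist, had 1.06 and 2.04 CPM in MLC, against 19.6 and 12.7 CPM in MesoT day 18. DKK1 fell by 3.38 ± 0.61 on the log2 scale (edgeR adjusted p = 0.0125). The groups did not overlap for either. TCF7, a factor of the pathway, had a log2 fold change of 0.93 ± 0.24, and NKD2, an intracellular antagonist, of -1.58 ± 0.44. AXIN2, the most general target of the pathway, had 54.5 and 59.0 CPM in MLC, against 44.3 and 49.7 CPM in MesoT day 18. AXIN2 did not pass in both countings, at 0.27 ± 0.18 on the log2 scale (edgeR adjusted p = 0.310, and 0.635 with the second table). Without MLC replicate 1 the 10 called FGF and WNT genes all lost the call, and without replicate 2 RNF43 kept it (edgeR adjusted p up to 0.272 and 0.218). SPRED3 and TCF7 lost it without day 18 replicate 1, and TCF7 and NKD2 without replicate 2 (edgeR adjusted p up to 0.0803 and 0.113).

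**Figure D3:**
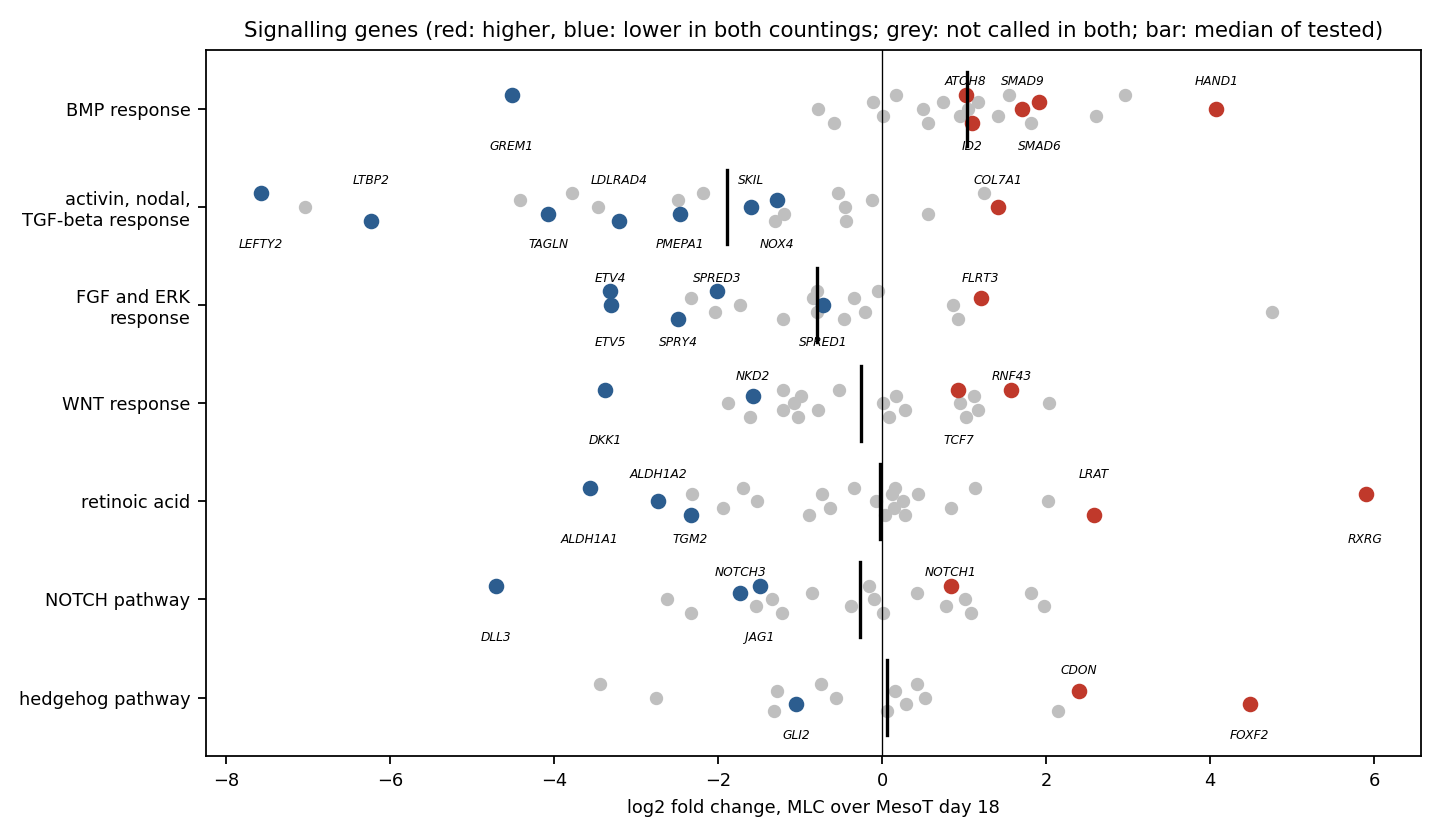
Log2 fold change (MLC over MesoT day 18, one-library files) of every tested gene of 7 signalling lists, coloured where called higher or lower in both countings and grey otherwise, with a bar at the median of each list. The median is 1.04 for the BMP response, -1.89 for the activin, nodal and TGF-beta response and -0.80 for FGF and ERK genes.

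Of 24 genes of retinoic acid synthesis, receptors and response, 2 were higher and 3 lower, shares near those of all genes, with a median log2 fold change of -0.02. Retinoic acid genes had 2 higher and 3 lower in the one-library files, 2 and 2 without day 18 replicate 1, 4 and 3 without day 18 replicate 2, 1 and 0 without MLC replicate 1 and 2 and 0 without MLC replicate 2, and the list median was 0.08 without MLC replicate 2. RXRG was the first that rose. LRAT, which stores retinol as esters, had 158 and 100.3 CPM in MLC, against 30.5 and 12.5 CPM in MesoT day 18. LRAT rose by 2.59 ± 0.46 on the log2 scale (edgeR adjusted p = 0.0120). A pair of enzymes that make retinoic acid were lower. ALDH1A2, the main such enzyme of embryonic mesoderm, had 7.15 and 8.43 CPM in MLC, against 30.5 and 72.8 CPM in MesoT day 18. ALDH1A2 fell by 2.73 ± 0.62 on the log2 scale (edgeR adjusted p = 0.0266). ALDH1A1, a related enzyme, had 9.25 and 2.39 CPM in MLC, against 117 and 21.3 CPM in MesoT day 18. ALDH1A1 fell by 3.57 ± 0.97 on the log2 scale (edgeR adjusted p = 0.0446). Day 18 replicate 2 held more ALDH1A2 and replicate 1 more ALDH1A1. TGM2, transglutaminase 2, a retinoic acid target, had 40.6 and 28.9 CPM in MLC, against 275 and 76.1 CPM in MesoT day 18. TGM2 fell by 2.34 ± 0.60 on the log2 scale (edgeR adjusted p = 0.0382). CYP26B1, which breaks retinoic acid down, had 406 and 174 CPM in MLC, against 1555 and 674 CPM in MesoT day 18. CYP26B1 did not pass in both countings, at -1.94 ± 0.82 on the log2 scale (edgeR adjusted p = 0.136, and 0.0313 with the second table). RARB, a retinoic acid receptor, had 66.4 and 58.1 CPM in MLC, against 109 and 123 CPM in MesoT day 18. RARB did not pass in both countings, at -0.90 ± 0.29 on the log2 scale (edgeR adjusted p = 0.0716, and 0.00629 with the second table). CYP26B1 and RARB were lower in each MLC library than in either day 18 library. RXRG passed without any 1 of the 4 libraries. LRAT, ALDH1A1, ALDH1A2 and TGM2 lost the call without MLC replicate 1, and the last 3 without replicate 2 (edgeR adjusted p up to 0.186 and 0.22). ALDH1A1 lost it without day 18 replicate 1 and ALDH1A2 without replicate 2 (edgeR adjusted p = 0.139 and 0.0614).

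In the NOTCH pathway 1 of 19 genes was higher and 3 lower (5.26% and 15.8%, against 8.12% and 9.1% of all genes). NOTCH genes had 1 higher and 3 lower in the one-library files, 2 and 4 without day 18 replicate 1, 2 and 3 without day 18 replicate 2, 0 and 1 without MLC replicate 1 and 0 and 2 without MLC replicate 2. NOTCH1, a receptor of the pathway, had 105 and 116 CPM in MLC, against 66.4 and 57.0 CPM in MesoT day 18. NOTCH1 rose by 0.84 ± 0.19 on the log2 scale (edgeR adjusted p = 0.0256). NOTCH3, the receptor typical of mural cells, had 71.2 and 106 CPM in MLC, against 333 and 257 CPM in MesoT day 18. NOTCH3 fell by 1.73 ± 0.27 on the log2 scale (edgeR adjusted p = 0.00742). The groups did not overlap for either receptor. JAG1 and DLL3, ligand genes, had log2 fold changes of -1.49 ± 0.22 and -4.71 ± 0.77, DLL3 at under 2 CPM in every library. Of 15 hedgehog pathway genes 2 were higher and 1 lower (13.3% and 6.67%, against 8.12% and 9.1% of all genes). Hedgehog genes had 2 higher and 1 lower in the one-library files, 2 and 2 without day 18 replicate 1, 2 and 1 without day 18 replicate 2, 1 and 0 without MLC replicate 1 and 0 and 0 without MLC replicate 2. CDON, a co-receptor, had 264 and 304 CPM in MLC, against 45.8 and 61.6 CPM in MesoT day 18. CDON rose by 2.40 ± 0.39 on the log2 scale (edgeR adjusted p = 0.00898). GLI2, a transcription factor of the pathway, had 26.7 and 32.0 CPM in MLC, against 76.6 and 45.1 CPM in MesoT day 18. GLI2 fell by 1.05 ± 0.28 on the log2 scale (edgeR adjusted p = 0.0437). FOXF2, a forkhead factor of gut mesenchyme, had a log2 fold change of 4.48 ± 0.65. DLL3 passed without any 1 of the 4 libraries, and 5 of the 7 called genes lost the call without MLC replicate 1 and as many without replicate 2 (edgeR adjusted p up to 0.246 and 0.173). GLI2 lost it without day 18 replicate 1 and NOTCH1 without replicate 2 (edgeR adjusted p = 0.106 and 0.051).

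Cell cycle genes were higher almost throughout: 20 of 25 were higher and 0 lower, with a median log2 fold change of 1.45. At an unadjusted p under 0.05 edgeR gave 21 higher and 0 lower in the one-library files, DESeq2 gave 21 and 0 at an adjusted p under 0.05, and limma voom 20 and 0. CENPE, a mitotic kinesin, had 64.2 and 74.5 CPM in MLC, against 17.2 and 20.0 CPM in MesoT day 18. CENPE rose by 1.90 ± 0.17 on the log2 scale (edgeR adjusted p = 0.00126). MKI67, a marker of cycling cells, had 314 and 321 CPM in MLC, against 55.7 and 103 CPM in MesoT day 18. MKI67 rose by 2.01 ± 0.31 on the log2 scale (edgeR adjusted p = 0.00784). PLK1, a mitotic kinase, had 60.9 and 56.4 CPM in MLC, against 17.1 and 24.7 CPM in MesoT day 18. PLK1 rose by 1.49 ± 0.22 on the log2 scale (edgeR adjusted p = 0.00640). E2F1, a factor of entry into S phase, had 44.8 and 37.99 CPM in MLC, against 5.12 and 14.1 CPM in MesoT day 18. E2F1 rose by 2.11 ± 0.47 on the log2 scale (edgeR adjusted p = 0.0252). Day 18 replicate 2 was the higher of its group for all 4 genes, and both MLC libraries were above it. The smallest change among the 20 was that of CCNB1, the mitotic cyclin B1, at 1.00 on the log2 scale, and the largest that of E2F1. 

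Of 15 inhibitors of the cell cycle kinases, 1 was higher and 2 lower (6.67% and 13.3%, against 8.12% and 9.1% of all genes). The inhibitors had 2 higher and 2 lower in the one-library files, 4 and 2 without day 18 replicate 1, 2 and 3 without day 18 replicate 2 and 1 and 0 without either MLC library. CDKN2B, an inhibitor of the G1 kinases and a TGF-beta target, had 18.9 and 6.37 CPM in MLC, against 559.9 and 111 CPM in MesoT day 18. CDKN2B fell by 4.73 ± 1.02 on the log2 scale (edgeR adjusted p = 0.0230). CDKN2A, encoded next to it, had 19.3 and 14.1 CPM in MLC, against 133 and 73.2 CPM in MesoT day 18. CDKN2A fell by 2.63 ± 0.43 on the log2 scale (edgeR adjusted p = 0.00913). CDKN2C, of the same family, had 3.71 and 3.76 CPM in MLC, against 0.644 and 0.376 CPM in MesoT day 18. CDKN2C rose by 2.86 ± 0.35 on the log2 scale (edgeR adjusted p = 0.00332). CDKN2C stood at low levels and was even across MLC. CENPE and CDKN2C passed without any 1 of the 4 libraries. Leaving out MLC replicate 1 or 2 left 1 of the 25 cell cycle genes called each time, with their median log2 fold change at 1.43 and 1.46, and ended the calls of CDKN2A and CDKN2B (edgeR adjusted p up to 0.153 and 0.142 among the named genes). TOP2A lost the call without day 18 replicate 1 (edgeR adjusted p = 0.0519), where 21 cell cycle genes were called, and 23 were called without replicate 2.

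Of the 20 cell cycle genes that rose, 18 had a promoter in RefSeq (build GRCh38.p14, 250 bases before to 50 after the start of the gene). The CCAAT box (CCAAT, either strand) was found in 16 of them (88.9%), against 35.7% of all 27305 promoters. In the whole cell cycle list, called or not, it was found in 19 of 22 (86.4%), so this share is one of the list. The CHR element (TTTGAA, either strand), known from genes of late cell cycle, was found in 9 (50.0%), against 15.4% of all. In the whole list it was found in 9 of 22 (40.9%). A match is a description and not a bound site. PLK1 and MKI67 are shown because they have the smallest p among the 8 genes with both motifs. PLK1 lies at chr16:23678639-23678938 on the plus strand and MKI67 at chr10:128126374-128126673 on the minus strand, and capitals mark both motifs.
PLK1: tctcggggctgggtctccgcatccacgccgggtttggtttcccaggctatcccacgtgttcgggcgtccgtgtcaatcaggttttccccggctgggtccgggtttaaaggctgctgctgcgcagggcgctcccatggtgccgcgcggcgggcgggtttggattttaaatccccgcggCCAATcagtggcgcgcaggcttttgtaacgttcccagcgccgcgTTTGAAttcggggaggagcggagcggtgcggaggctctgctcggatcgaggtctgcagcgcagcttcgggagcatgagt
MKI67: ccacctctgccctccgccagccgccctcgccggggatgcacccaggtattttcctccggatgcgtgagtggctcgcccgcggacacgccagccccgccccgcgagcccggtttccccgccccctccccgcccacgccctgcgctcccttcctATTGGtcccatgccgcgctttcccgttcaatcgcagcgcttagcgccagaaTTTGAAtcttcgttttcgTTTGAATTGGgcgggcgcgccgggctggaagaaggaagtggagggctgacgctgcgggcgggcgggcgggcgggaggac
In PLK1 the CCAAT box begins 73 bases before the start and the CHR element 29 bases before it. In MKI67 a CCAAT box shares bases with a CHR element.

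Of 20 smooth muscle contractile genes 5 were lower and 1, DES, higher, with a median log2 fold change of -0.72. Contractile genes had 1 higher and 5 lower in the one-library files, 1 and 3 without day 18 replicate 1, 0 and 8 without day 18 replicate 2 and 0 and 1 without either MLC library, and the list median was 0.16 without day 18 replicate 1. ACTA2, smooth muscle actin, had 10.3 and 12.5 CPM in MLC, against 515 and 80.7 CPM in MesoT day 18. ACTA2 fell by 4.71 ± 1.24 on the log2 scale (edgeR adjusted p = 0.0412), and by 4.08 with the second table. MYH11, smooth muscle myosin heavy chain, had 0.0925 and 0.0997 CPM in MLC, against 9.12 and 4.72 CPM in MesoT day 18. MYH11 fell by 6.12 ± 0.50 on the log2 scale (edgeR adjusted p = 0.000908), and by 5.12 with the second table. ACTG2, the actin of enteric smooth muscle, had 0.397 and 0.385 CPM in MLC, against 20.9 and 7.38 CPM in MesoT day 18. ACTG2 fell by 5.17 ± 1.02 on the log2 scale (edgeR adjusted p = 0.0175). MLC libraries were alike for these genes, and day 18 replicate 1 was the highest library for each. MYOCD, the coactivator of contractile genes, had 0.740 and 1.21 CPM in MLC, against 29.0 and 7.93 CPM in MesoT day 18. MYOCD fell by 4.24 ± 0.73 on the log2 scale (edgeR adjusted p = 0.0111). TAGLN, given above, was the fifth. CNN1, calponin, had 54.7 and 39.5 CPM in MLC, against 107 and 22.5 CPM in MesoT day 18. CNN1 did not pass in both countings, at -0.46 ± 0.89 on the log2 scale (edgeR adjusted p = 0.738, and 0.743 with the second table). CNN1 overlapped between the groups. MYH11 passed without any 1 of the 4 libraries, and the other 5 calls ended without MLC replicate 1 or 2 (edgeR adjusted p up to 0.223 and 0.221). ACTA2, TAGLN and DES lost the call without day 18 replicate 1 (edgeR adjusted p up to 0.103), and DES without replicate 2 (edgeR adjusted p = 0.0779).

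The CArG box, the motif of serum response factor, was searched on both strands of the same promoters. It was found in 3 of 15 contractile genes (20.0%), against 1.28% of all promoters. ACTG2 is shown because it fell and its promoter holds the motif. The 2 matches, in capitals, begin 110 and 73 bases before the start. The ACTG2 promoter lies at chr2:73892758-73893057 on the plus strand of GRCh38.p14.
ACTG2: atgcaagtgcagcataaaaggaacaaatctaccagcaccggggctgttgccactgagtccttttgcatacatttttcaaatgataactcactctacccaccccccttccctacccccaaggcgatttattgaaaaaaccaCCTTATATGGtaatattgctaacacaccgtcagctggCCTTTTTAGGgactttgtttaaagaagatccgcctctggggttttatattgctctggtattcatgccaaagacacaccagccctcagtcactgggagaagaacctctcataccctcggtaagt
Of the contractile genes that fell, 2 had a promoter in RefSeq, and 1 of these, that of ACTG2, held the motif.

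Of 17 endothelial genes 6 fell, with a median log2 fold change of -4.25, or -4.08 with ROBO4 at its bound. Endothelial genes had 0 higher and 7 lower in the one-library files, 0 and 9 without day 18 replicate 1, 0 and 6 without day 18 replicate 2, 0 and 2 without MLC replicate 1 and 0 and 1 without MLC replicate 2, and the list median was -2.79 without day 18 replicate 2 and -3.45 without MLC replicate 1. The summed level of the list was 147 and 191 CPM in MLC against 403 and 222 CPM in MesoT day 18. ERG, an endothelial ETS factor, had 0.0397 and 0.0142 CPM in MLC, against 9.80 and 8.48 CPM in MesoT day 18. ERG fell by 8.23 ± 0.52 on the log2 scale (edgeR adjusted p = 0.000463). FLI1, a related factor, had 0.476 and 0.356 CPM in MLC, against 11.3 and 44.5 CPM in MesoT day 18. FLI1 fell by 6.05 ± 0.80 on the log2 scale (edgeR adjusted p = 0.00441). ERG was even across the day 18 libraries, while FLI1 was mostly in replicate 2. TIE1, ESAM and EGFL7, other endothelial genes, had log2 fold changes of -4.49 ± 0.96 (-5.72 with the second table), -2.99 ± 0.48 and -1.28 ± 0.18. ROBO4 had 0 counts in MLC and 21 in MesoT day 18, at least 16.9-fold lower by a floor of 3 counts over the group, and the second table had 3 and 29 counts at day 18 (at least 22.0-fold). PECAM1 was at 0 counts in every library, which is not read as absence, since the counting settings per file were not stated. CDH5, VE-cadherin, had 0.542 and 0.214 CPM in MLC, against 2.64 and 4.92 CPM in MesoT day 18. CDH5 did not pass in both countings, at -3.31 ± 0.66 on the log2 scale (edgeR adjusted p = 0.0182, and 0.124 with the second table). KDR, a VEGF receptor that early mesoderm also expresses, had 115 and 156 CPM in MLC, against 249 and 74.7 CPM in MesoT day 18. KDR did not pass in both countings, at -0.26 ± 1.10 on the log2 scale (edgeR adjusted p = 0.887, and 0.828 with the second table). KDR gave most of the summed level in both MLC libraries and in day 18 replicate 1, but not in replicate 2.

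Of 11 pericyte genes 4 were lower, with summed levels of 235 and 304 CPM in MLC against 916 and 759 CPM in MesoT day 18. Pericyte genes had 0 higher and 4 lower in the one-library files, 0 and 5 without day 18 replicate 1, 1 and 2 without day 18 replicate 2, 0 and 0 without MLC replicate 1 and 0 and 1 without MLC replicate 2. RGS5, a regulator of G protein signalling in mural cells, had 49.2 and 41.0 CPM in MLC, against 409.7 and 211 CPM in MesoT day 18. RGS5 fell by 2.78 ± 0.70 on the log2 scale (edgeR adjusted p = 0.0356). KCNJ8 and FOXS1 had log2 fold changes of -3.11 ± 0.82 and -2.53 ± 0.58, and NOTCH3 was the other. RUNX1, a blood-forming factor that is also active in mesenchyme, had 13.2 and 16.3 CPM in MLC, against 79.0 and 45.6 CPM in MesoT day 18. RUNX1 fell by 2.08 ± 0.30 on the log2 scale (edgeR adjusted p = 0.00584). It was the 1 of 3 tested blood genes that fell. The haemoglobin genes HBA1, HBA2 and HBZ were at 0 counts, which is likewise not read as absence. The part of such cells in the other differences was not tested. ERG passed without any 1 of the 4 libraries, and 9 of the 11 called vessel and blood genes lost the call without MLC replicate 1 and as many without replicate 2 (edgeR adjusted p up to 0.231 and 0.203). RGS5 lost it without day 18 replicate 1, and ROBO4, KCNJ8 and FOXS1 without replicate 2 (edgeR adjusted p up to 0.0937 and 0.102).

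Of 39 collagen genes 5 were higher and 3 lower (12.8% higher and 7.69% lower), shares near the 8.12% and 9.1% of all genes, with a median log2 fold change of -0.12. Collagen genes had 5 higher and 3 lower in the one-library files, 9 and 3 without day 18 replicate 1, 6 and 9 without day 18 replicate 2, 3 and 0 without MLC replicate 1 and 2 and 0 without MLC replicate 2, and the list median was 0.37 without day 18 replicate 1. The higher ones include 4 chains known from cartilage, and the lower ones a pair of basement membrane chains. COL2A1, the chain of type II collagen, had 228 and 242 CPM in MLC, against 16.6 and 32.0 CPM in MesoT day 18. COL2A1 rose by 3.27 ± 0.33 on the log2 scale (edgeR adjusted p = 0.00181). COL11A2, a chain of type XI collagen, had 65.9 and 77.0 CPM in MLC, against 3.51 and 9.09 CPM in MesoT day 18. COL11A2 rose by 3.50 ± 0.46 on the log2 scale (edgeR adjusted p = 0.00453). COL9A3, a chain of type IX collagen, had 393 and 419 CPM in MLC, against 138 and 61.9 CPM in MesoT day 18. COL9A3 rose by 2.02 ± 0.46 on the log2 scale (edgeR adjusted p = 0.0262). For COL2A1 and COL11A2 the MLC libraries were even and far above both day 18 libraries. COL9A2 had a log2 fold change of 1.55 ± 0.23, and COL7A1 was the other gene that rose. COL4A1, a common basement membrane chain, had 169.5 and 209 CPM in MLC, against 2385 and 505 CPM in MesoT day 18. COL4A1 fell by 2.93 ± 0.75 on the log2 scale (edgeR adjusted p = 0.0382). COL4A2, its partner chain, had 311 and 330.5 CPM in MLC, against 2484 and 674 CPM in MesoT day 18. COL4A2 fell by 2.30 ± 0.64 on the log2 scale (edgeR adjusted p = 0.0483). Day 18 replicate 1 held several times more of both than any other library. COL8A1, a chain of endothelial and corneal matrix, had a log2 fold change of -5.11 ± 0.89 (-6.15 with the second table).

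Of 22 laminins and basement membrane partners 3 were higher and 2 lower (13.6% and 9.09%, against 8.12% and 9.1% of all genes). The list had 3 higher and 2 lower in the one-library files, 6 and 2 without day 18 replicate 1, 5 and 2 without day 18 replicate 2, 0 and 0 without MLC replicate 1 and 1 and 0 without MLC replicate 2. LAMC1, the gamma chain shared by most laminins, had 1477 and 1211 CPM in MLC, against 512 and 478 CPM in MesoT day 18. LAMC1 rose by 1.44 ± 0.21 on the log2 scale (edgeR adjusted p = 0.00626). LAMB2, a beta chain, had 462 and 426 CPM in MLC, against 176 and 107 CPM in MesoT day 18. LAMB2 rose by 1.65 ± 0.28 on the log2 scale (edgeR adjusted p = 0.009997). LAMB1, the other common beta chain, had 327 and 342 CPM in MLC, against 973 and 743 CPM in MesoT day 18. LAMB1 fell by 1.36 ± 0.22 on the log2 scale (edgeR adjusted p = 0.00841). The beta chain genes thus went opposite ways, with no overlap between groups for either. LAMA5, an alpha chain of mature epithelial basement membranes, had a log2 fold change of 1.30 ± 0.21, and LAMB4 had -3.77 ± 1.02.

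Of 38 proteoglycans, elastic fibre and matricellular genes 1 was higher and 9 lower. These genes had 1 higher and 10 lower in the one-library files, 4 and 10 without day 18 replicate 1, 2 and 16 without day 18 replicate 2, 0 and 2 without MLC replicate 1 and 0 and 3 without MLC replicate 2. VCAN, the large hyaluronan-binding proteoglycan versican, had 234 and 321 CPM in MLC, against 1894 and 1472 CPM in MesoT day 18. VCAN fell by 2.60 ± 0.26 on the log2 scale (edgeR adjusted p = 0.00180). BGN, the small proteoglycan biglycan, had 6.65 and 8.72 CPM in MLC, against 113 and 86.0 CPM in MesoT day 18. BGN fell by 3.70 ± 0.43 on the log2 scale (edgeR adjusted p = 0.00282). Both were at like levels in the day 18 libraries and several times lower in each MLC library. SPOCK1, a testican proteoglycan, had 0.119 and 0.128 CPM in MLC, against 67.9 and 11.4 CPM in MesoT day 18. SPOCK1 fell by 8.29 ± 1.15 on the log2 scale (edgeR adjusted p = 0.00539). MGP, an inhibitor of calcification, had 2.70 and 2.49 CPM in MLC, against 297 and 43.3 CPM in MesoT day 18. MGP fell by 6.03 ± 1.04 on the log2 scale (edgeR adjusted p = 0.0111). THBS1, thrombospondin 1, had 72.2 and 57.9 CPM in MLC, against 1251 and 269 CPM in MesoT day 18. THBS1 fell by 3.55 ± 0.77 on the log2 scale (edgeR adjusted p = 0.0237). These 3 were mostly in day 18 replicate 1, with MLC below both. TNC fell as above, and THBS2, ASPN and MFAP2 had log2 fold changes of -3.98 ± 1.02, -2.95 ± 0.59 and -0.87 ± 0.22. KERA, keratocan, was higher at under 2 CPM, by 4.31 on the log2 scale and by 5.25 with the second table. COL2A1, COL11A2, BGN and VCAN passed without any 1 of the 4 libraries. Of the 23 called matrix genes 18 lost the call without MLC replicate 1 and as many without replicate 2 (edgeR adjusted p up to 0.238 and 0.232). COL4A1, COL4A2 and MFAP2 lost it without day 18 replicate 1, and LAMB4 and MFAP2 without replicate 2 (edgeR adjusted p up to 0.0987 and 0.072).

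Genes of liver were detected in MLC. Of 14 hepatocyte genes 7 were higher and 1 lower, and the summed level was 162 and 72.0 CPM in MLC against 5.77 and 6.77 CPM in MesoT day 18. Hepatocyte genes had 7 higher and 1 lower in the one-library files, 8 and 1 without day 18 replicate 1, 9 and 1 without day 18 replicate 2 and 3 and 0 without either MLC library. AFP, alpha-fetoprotein of fetal liver and yolk sac, had 84.6 and 34.2 CPM in MLC, against 0.290 and 1.03 CPM in MesoT day 18. AFP rose by 6.50 ± 0.82 on the log2 scale (edgeR adjusted p = 0.00374). APOB, the main lipoprotein of liver and gut, had 14.99 and 8.23 CPM in MLC, against 0.193 and 0.410 CPM in MesoT day 18. APOB rose by 5.26 ± 0.62 on the log2 scale (edgeR adjusted p = 0.00532), and by 4.58 with the second table. MLC replicate 1 was above replicate 2 for both, and both were far above day 18. SERPINA1, alpha-1 antitrypsin, had 994 counts in MLC and 0 in MesoT day 18, at least 137-fold higher by a floor of 3 counts over the group. FGA, a fibrinogen chain, had 254 and 0, at least 35-fold higher. The second table held 0 and 1 counts at day 18 (ratio 481, counting interval 86.1 to 19013) for SERPINA1 and 0 and 1 counts at day 18 (ratio 123, counting interval 21.9 to 4872) for FGA. HNF4A, a factor of hepatocytes and gut epithelium, had 354 counts in MLC and 2 in MesoT day 18 (ratio 73.2, 95% interval of counting error 20.1 to 607), and the second table held 2 and 2 counts at day 18 (ratio 42.8, counting interval 16.6 to 158). TTR and APOA2, both carriers in plasma, had log2 fold changes of 4.28 ± 0.65 and 5.28 ± 1.13. ALB, albumin, had 1.72 and 0.883 CPM in MLC, against 0.0967 and 0.308 CPM in MesoT day 18. ALB did not pass in both countings, at 2.68 ± 0.81 on the log2 scale (edgeR adjusted p = 0.0721, and 0.00379 with the second table). The part of such cells in the other differences was not tested.

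Of 12 gut epithelium genes 5 were higher, with summed levels of 60.4 and 37.4 CPM in MLC against 17.6 and 27.4 CPM in MesoT day 18. Gut genes had 5 higher and 0 lower in the one-library files, 4 and 1 without day 18 replicate 1, 4 and 0 without day 18 replicate 2 and 2 and 0 without either MLC library. FABP1, a fatty acid binding protein of liver and gut, had 1934 counts in MLC and 0 in MesoT day 18, at least 266.5-fold higher. The second table held 0 and 1 counts at day 18 (ratio 936, counting interval 168 to 36974) for FABP1. KRT20, a gut keratin, had 547 and 0, at least 75.4-fold higher by these counts, but the second table held 0 and 6 counts at day 18 (ratio 44.1, counting interval 20.1 to 121). PHGR1 had 113 and 0, at least 15.6-fold higher. LGALS4, a gut galectin, had 10.6 and 6.31 CPM in MLC, against 0.0644 and 0.103 CPM in MesoT day 18. LGALS4 rose by 6.61 ± 0.61 on the log2 scale (edgeR adjusted p = 0.00252). CDH17, a gut cadherin, had 11.4 and 5.74 CPM in MLC, against 0.0322 and 0.273 CPM in MesoT day 18. CDH17 rose by 5.80 ± 0.93 on the log2 scale (edgeR adjusted p = 0.0136), and by 4.32 with the second table. MLC replicate 1 was again above replicate 2. Of 11 early endoderm and foregut factors 1, HNF4A, was higher and 2 were lower, with a median log2 fold change of -2.62. Endoderm factors had 1 higher and 2 lower in the one-library files, 0 and 2 without day 18 replicate 1, 1 and 2 without day 18 replicate 2 and 0 and 1 without either MLC library, and the list median was -3.43 without day 18 replicate 1 and -0.21 without day 18 replicate 2. CXCR4, a chemokine receptor of early endoderm and other cells, had 0.106 and 0.313 CPM in MLC, against 15.53 and 18.9 CPM in MesoT day 18. CXCR4 fell by 6.35 ± 0.71 on the log2 scale (edgeR adjusted p = 0.00252). HHEX, an endoderm and endothelial factor, had 3 counts in MLC and 94 in MesoT day 18 (ratio 0.0132, 95% interval of counting error 0.00267 to 0.0398). FOXA2, an endoderm factor, had 8 and 1 counts (ratio 3.31, 95% interval of counting error 0.443 to 147). AFP, APOB, SERPINA1, FABP1 and LGALS4 passed without any 1 of the 4 libraries, and 7 of 12 called liver and gut genes lost the call without MLC replicate 1 or 2 (edgeR adjusted p up to 0.201 and 0.141). HNF4A and PHGR1 lost it without day 18 replicate 1, and PHGR1 without replicate 2 (edgeR adjusted p up to 0.0687 and 0.0528).

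Some genes known from amnion were high in MLC. Of 19 amnion, trophoblast and surface ectoderm genes 3 were higher and 1 lower, with a median log2 fold change of -0.02. Amnion and ectoderm genes had 5 higher and 1 lower in the one-library files, 5 and 2 without day 18 replicate 1, 5 and 4 without day 18 replicate 2, 3 and 0 without MLC replicate 1 and 4 and 0 without MLC replicate 2, and the list median was 0.12 without day 18 replicate 2. GABRP, a GABA receptor subunit, had 539 and 608 CPM in MLC, against 47.9 and 48.7 CPM in MesoT day 18. GABRP rose by 3.57 ± 0.25 on the log2 scale (edgeR adjusted p = 0.000587). VTCN1, an immune checkpoint ligand, had 225 and 249 CPM in MLC, against 13.6 and 13.1 CPM in MesoT day 18. VTCN1 rose by 4.15 ± 0.26 on the log2 scale (edgeR adjusted p = 0.000445). The libraries of each group were alike for both genes, and HAND1 was the other that rose. WNT6, a ligand of surface ectoderm, had 12.2 and 9.002 CPM in MLC, against 65.1 and 30.6 CPM in MesoT day 18. WNT6 fell by 2.17 ± 0.48 on the log2 scale (edgeR adjusted p = 0.0247). The summed level of the list was 2275 and 2427 CPM in MLC against 3727 and 1499 CPM in MesoT day 18, so the list as a whole overlapped.

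Of 11 neural and neural crest genes 2 were higher and 2 lower. Neural genes had 3 higher and 2 lower in the one-library files, 3 and 3 without day 18 replicate 1, 3 and 2 without day 18 replicate 2 and 1 and 0 without either MLC library. DCX, doublecortin of young neurons, had 128 and 106 CPM in MLC, against 0.967 and 10.6 CPM in MesoT day 18. DCX rose by 4.35 ± 1.05 on the log2 scale (edgeR adjusted p = 0.0319). TFAP2B, an AP-2 factor of neural crest and kidney, had 38.6 and 50.1 CPM in MLC, against 5.48 and 4.44 CPM in MesoT day 18. TFAP2B rose by 3.16 ± 0.28 on the log2 scale (edgeR adjusted p = 0.00227). TFAP2B was even within each group, while DCX differed several-fold between the day 18 libraries. STMN2, of growing axons, and PAX6, a factor of eye and brain, had log2 fold changes of -2.63 ± 0.70 and -5.40 ± 0.81. Of 12 pluripotency genes 2 were lower. Pluripotency genes had 1 higher and 2 lower in the one-library files, 1 and 1 without day 18 replicate 1, 2 and 1 without day 18 replicate 2 and 0 and 1 without either MLC library. POU5F1, the pluripotency factor OCT4, had 0.145 and 0.0142 CPM in MLC, against 4.35 and 5.33 CPM in MesoT day 18. POU5F1 fell by 5.85 ± 0.92 on the log2 scale (edgeR adjusted p = 0.00809), and by 6.68 with the second table. NANOG had 1 count in MLC and 21 in MesoT day 18 (ratio 0.0197, 95% interval of counting error 0.000476 to 0.122), and the second table held 106 and 145 counts at day 18 (ratio 0.00193, counting interval 4.86e-05 to 0.0108). GABRP, VTCN1, HAND1, TFAP2B and POU5F1 passed without any 1 of the 4 libraries, and the other 5 genes lost the call without MLC replicate 1 or 2 (edgeR adjusted p up to 0.235 and 0.179). WNT6 lost it without day 18 replicate 1 (edgeR adjusted p = 0.0571) and STMN2 without replicate 2 (edgeR adjusted p = 0.117), and NANOG was removed by the low-count filter without either.

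Of 27 genes of glycolysis and hypoxia response 5 were lower (0% higher and 18.5% lower, against 8.12% and 9.1% of all genes), with a median log2 fold change of -0.63. Glycolysis and hypoxia genes had 0 higher and 7 lower in the one-library files, 3 and 3 without day 18 replicate 1, 0 and 14 without day 18 replicate 2 and 0 and 1 without either MLC library. ENO2, an enolase of neurons, had 0.819 and 2.44 CPM in MLC, against 39.9 and 19.3 CPM in MesoT day 18. ENO2 fell by 4.19 ± 0.61 on the log2 scale (edgeR adjusted p = 0.00623). ALDOA, aldolase, had 236 and 259.9 CPM in MLC, against 710.3 and 384 CPM in MesoT day 18. ALDOA fell by 1.14 ± 0.32 on the log2 scale (edgeR adjusted p = 0.0492). GPI, glucose phosphate isomerase, had 88.4 and 86.9 CPM in MLC, against 193 and 132 CPM in MesoT day 18. GPI fell by 0.89 ± 0.23 on the log2 scale (edgeR adjusted p = 0.0395). No MLC library reached a day 18 library for these 3. The hypoxia-induced genes BNIP3 and EGLN3 had log2 fold changes of -1.63 ± 0.31 and -2.27 ± 0.44. Of 26 sterol and fatty acid genes 2 were higher (7.69%, against 8.12% of all genes). FASN, fatty acid synthase, rose by 0.96 and ELOVL6, an elongase, by 0.82 on the log2 scale. Lipid genes had 2 higher and 0 lower in the one-library files, 4 and 0 without day 18 replicate 1, 1 and 0 without day 18 replicate 2 and 0 and 0 without either MLC library. In the interferon list 3 of 26 were lower (11.5%, against 9.1% of all genes). Interferon genes had 0 higher and 4 lower in the one-library files, 2 and 3 without day 18 replicate 1, 0 and 3 without day 18 replicate 2 and 0 and 0 without either MLC library. BST2, tetherin, had 18.4 and 22.08 CPM in MLC, against 97.96 and 114 CPM in MesoT day 18. BST2 fell by 2.39 ± 0.49 on the log2 scale (edgeR adjusted p = 0.0194). HLA-B, a class I gene whose reads are hard to split from those of near-identical genes, had an uncertain log2 fold change of -2.06 ± 0.41.

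Of 13 mitochondrially encoded genes 10 were higher and 1 lower. Mitochondrial genes had 10 higher and 1 lower in the one-library files, 12 and 1 without day 18 replicate 1, 8 and 1 without day 18 replicate 2, 1 and 0 without MLC replicate 1 and 0 and 0 without MLC replicate 2. MT-CO1, a subunit of cytochrome oxidase, had 14107 and 16839 CPM in MLC, against 6808 and 5605 CPM in MesoT day 18. MT-CO1 rose by 1.32 ± 0.31 on the log2 scale (edgeR adjusted p = 0.0294). MT-ND1, a subunit of complex I, had 3188 and 3390.5 CPM in MLC, against 1266 and 1038 CPM in MesoT day 18. MT-ND1 rose by 1.51 ± 0.26 on the log2 scale (edgeR adjusted p = 0.0106). MT-ND6, the one protein-coding gene of the light strand, had 195 and 204 CPM in MLC, against 1026 and 819 CPM in MesoT day 18. MT-ND6 fell by 2.21 ± 0.26 on the log2 scale (edgeR adjusted p = 0.00313). MT-ND6 was thus lower in both MLC libraries while the other called genes were higher, and the part of strand settings in counting was not tested. Of 28 nuclear genes of the respiratory chain edgeR called 0 higher and 0 lower, with 0 higher and 2 lower at an unadjusted p under 0.05, while DESeq2 called 0 and 2 and limma voom 0 and 1 at an adjusted p under 0.05. ENO2 passed without any 1 of the 4 libraries, and the other 11 named metabolic, interferon and mitochondrial genes did not without MLC replicate 1 or 2 (edgeR adjusted p up to 0.261 and 0.22). GPI and ALDOA lost the call without day 18 replicate 1, and ELOVL6 without replicate 2 (edgeR adjusted p up to 0.0823 and 0.054).

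Of 29 axon guidance genes 4 were higher and 2 lower (13.8% and 6.9%, against 8.12% and 9.1% of all genes). Axon guidance genes had 4 higher and 2 lower in the one-library files, 7 and 3 without day 18 replicate 1, 6 and 3 without day 18 replicate 2 and 1 and 1 without either MLC library. PLXNA2, a semaphorin receptor, had 366 and 376 CPM in MLC, against 52.0 and 41.6 CPM in MesoT day 18. PLXNA2 rose by 2.99 ± 0.50 on the log2 scale (edgeR adjusted p = 0.00991). PLXND1, another semaphorin receptor, had 137 and 127 CPM in MLC, against 37.9 and 39.8 CPM in MesoT day 18. PLXND1 rose by 1.76 ± 0.19 on the log2 scale (edgeR adjusted p = 0.00230). NEO1, a receptor of netrins and RGM proteins, had 423 and 369 CPM in MLC, against 125 and 163 CPM in MesoT day 18. NEO1 rose by 1.46 ± 0.25 on the log2 scale (edgeR adjusted p = 0.0111). The groups did not overlap for these receptors, and their replicates lay close together. SEMA3F, a semaphorin, had a log2 fold change of 1.18 ± 0.32. SLIT2, a secreted guidance ligand, had 16.8 and 23.6 CPM in MLC, against 96.4 and 125 CPM in MesoT day 18. SLIT2 fell by 2.45 ± 0.27 on the log2 scale (edgeR adjusted p = 0.00242). DCC, a netrin receptor, had 2 counts in MLC and 58 in MesoT day 18 (ratio 0.0143, 95% interval of counting error 0.00169 to 0.0539), and the second table held 21 and 113 counts at day 18 (ratio 0.00722, counting interval 0.000866 to 0.0266). Of 14 podocyte and nephron genes 2 were lower, SYNPO and PTPRO, with log2 fold changes of -2.86 ± 0.80 and -5.04 ± 1.27. Podocyte genes had 1 higher and 2 lower in the one-library files, 4 and 1 without day 18 replicate 1, 2 and 3 without day 18 replicate 2 and 0 and 0 without either MLC library. FOS was the 1 of 25 immediate early and stress genes that rose. Stress genes had 5 higher and 0 lower in the one-library files, 11 and 0 without day 18 replicate 1, 3 and 4 without day 18 replicate 2 and 0 and 0 without either MLC library. Of 20 SRF and YAP targets TAGLN fell and AXL, a receptor kinase, rose by 0.86 on the log2 scale. The shares were 5% higher and 5% lower, against 8.12% and 9.1% of all genes. SRF and YAP targets had 1 higher and 1 lower in the one-library files, 3 and 0 without day 18 replicate 1, 1 and 3 without day 18 replicate 2 and 0 and 0 without either MLC library. Of 21 IGF pathway and imprinted genes, IGF1 and IGFBP7 fell as above and 1 rose. The shares were 4.76% higher and 9.52% lower, against 8.12% and 9.1% of all genes. IGF genes had 2 higher and 3 lower in the one-library files, 2 and 2 without day 18 replicate 1, 2 and 7 without day 18 replicate 2, 0 and 1 without MLC replicate 1 and 0 and 2 without MLC replicate 2. IGFBP4, a secreted IGF-binding protein, had 189.8 and 156 CPM in MLC, against 65.3 and 85.9 CPM in MesoT day 18. IGFBP4 rose by 1.19 ± 0.22 on the log2 scale (edgeR adjusted p = 0.0134).

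Of 19 hyaluronan, glypican and syndecan genes 3 were higher and 2 lower (15.8% and 10.5%, against 8.12% and 9.1% of all genes). Hyaluronan and syndecan genes had 3 higher and 2 lower in the one-library files, 4 and 2 without day 18 replicate 1, 1 and 2 without day 18 replicate 2 and 1 and 1 without either MLC library. HMMR, a hyaluronan receptor and spindle protein, had 39.2 and 37.6 CPM in MLC, against 10.7 and 13.6 CPM in MesoT day 18. HMMR rose by 1.66 ± 0.20 on the log2 scale (edgeR adjusted p = 0.00297). HAS3, a hyaluronan synthase, had 0.449 and 0.370 CPM in MLC, against 17.8 and 12.95 CPM in MesoT day 18. HAS3 fell by 5.22 ± 0.30 on the log2 scale (edgeR adjusted p = 0.000380), and by 1.58 with the second table. In the second table HAS3 stood at 1.98 and 1.09 CPM at day 18, still above MLC. LAYN, a hyaluronan receptor, and SDC4 and SDC2, syndecans, had log2 fold changes of 0.95 ± 0.25, 0.93 ± 0.25 and -1.60 ± 0.35. Of 26 complement, coagulation control and prostaglandin genes 2 were higher and 4 lower (7.69% and 15.4%, against 8.12% and 9.1% of all genes). Complement and coagulation genes had 2 higher and 4 lower in the one-library files, 4 and 3 without day 18 replicate 1, 1 and 7 without day 18 replicate 2 and 0 and 1 without either MLC library. PTGS1, cyclooxygenase 1, had 118 and 110.5 CPM in MLC, against 27.3 and 4.96 CPM in MesoT day 18. PTGS1 rose by 2.82 ± 0.74 on the log2 scale (edgeR adjusted p = 0.0401). SERPING1, the C1 inhibitor, had a log2 fold change of 0.87 ± 0.23. CD55, which protects cells from complement, had -1.45 ± 0.39. SERPINE2, a protease inhibitor, and PROCR, the protein C receptor, had -2.12 ± 0.45 and -3.58 ± 0.62. PLXND1, SLIT2, IGF1, HMMR and HAS3 passed without any 1 of the 4 libraries, and 14 of 19 called genes of these lists did not without MLC replicate 1 or 2 (edgeR adjusted p up to 0.263 and 0.236). SEMA3F, SERPING1 and CD55 lost the call without day 18 replicate 1, and DCC, LAYN, SDC4 and SERPING1 without replicate 2 (edgeR adjusted p up to 0.13 and 0.105).

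**Figure D4:**
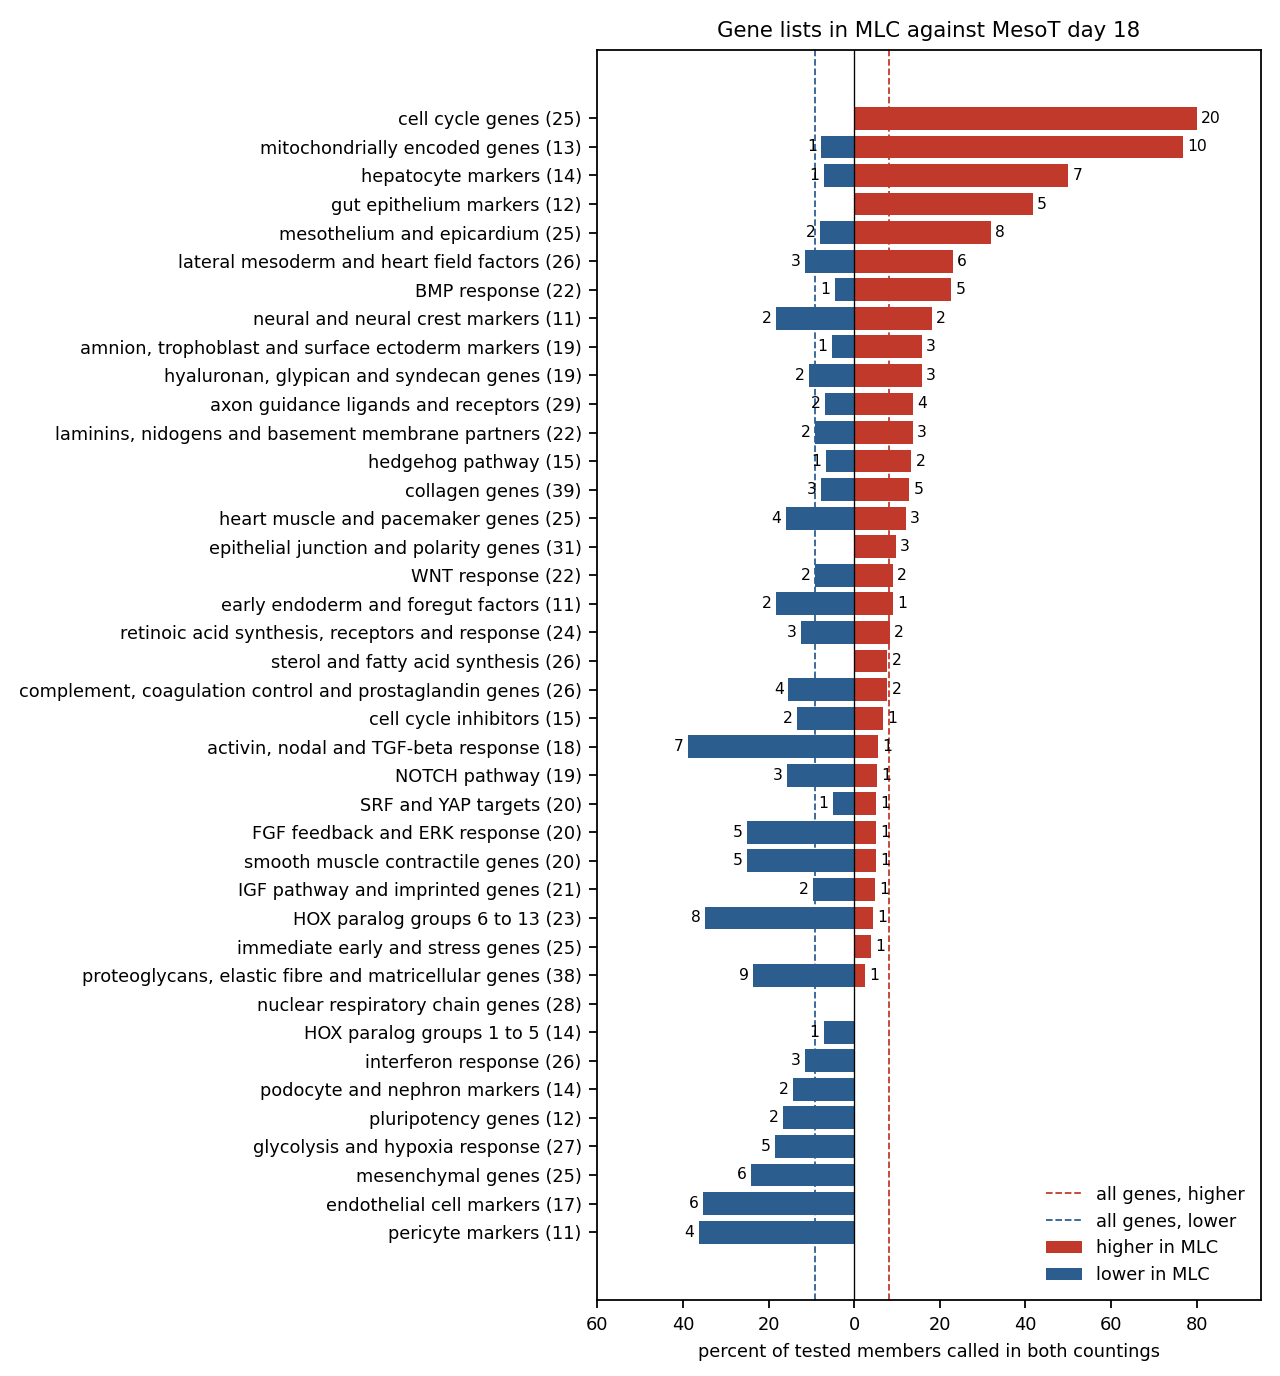
For each gene list, the percent of its tested members called higher or lower in MLC than in MesoT day 18 in both countings, with the number called beside each bar and dashed lines at the percent over all genes. Of the cell cycle genes 20 of 25 are higher, and of the 23 HOX genes of groups 6 to 13 8 are lower, against 8.12% and 9.1% of all genes.

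MLC were also made from MesoT by replating it in the MLC medium, and these were compared with MesoT day 22. The one-library comparison above does not use these libraries, but they share the fit, and so the estimate of spread, with the day 18 columns of the second table. There 612 of 22316 genes passed (2.74%), 419 higher (1.88%) and 193 lower (0.865%). Of 1507 genes that were higher in direct MLC and tested there, 149 were higher, which is 9.89% of these and 38.4% of the 388 higher genes of the MesoT route, and 9 were lower. Of 1773 that were lower in direct MLC, 70 were lower, which is 3.95% of these and 41.9% of 167, and 16 were higher. With any 1 of its 4 libraries left out, the MesoT route gave 0 genes by edgeR, with 3579 to 4041 at an unadjusted p under 0.05, while DESeq2 with all libraries gave 3538.

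Of the 12 highest genes, CDH23, ARHGAP22 and SERPINE3 were also called higher in MLC made from MesoT. Their log2 fold changes there were 2.52 ± 0.22, 3.81 ± 0.56 and 2.81 ± 0.33 (edgeR adjusted p = 0.0260, 0.0394 and 0.0339). Of the 12 lowest, MECOM (-4.001 ± 0.56), CRHBP (-6.95 ± 1.10) and IGFBP7 (-3.44 ± 0.56) were called lower there too. RXRG stood at 0.0654 and 0.0328 CPM in MLC made from MesoT against 0.447 and 1.98 CPM in MesoT day 22, and did not pass (edgeR adjusted p = 0.0631), at -4.51 ± 0.98 on the log2 scale. HCN4 and WT1 had 1.29 ± 0.59 and 2.06 ± 0.37 and did not pass (edgeR adjusted p = 0.226 and 0.0508). UPK3B stood at 166 and 312 CPM in MLC made from MesoT against 21.2 and 38.6 CPM in MesoT day 22, and its log2 fold change was 3.00 ± 0.54 (edgeR adjusted p = 0.0506). The difference between the routes was not tested.

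**Figure D5:**
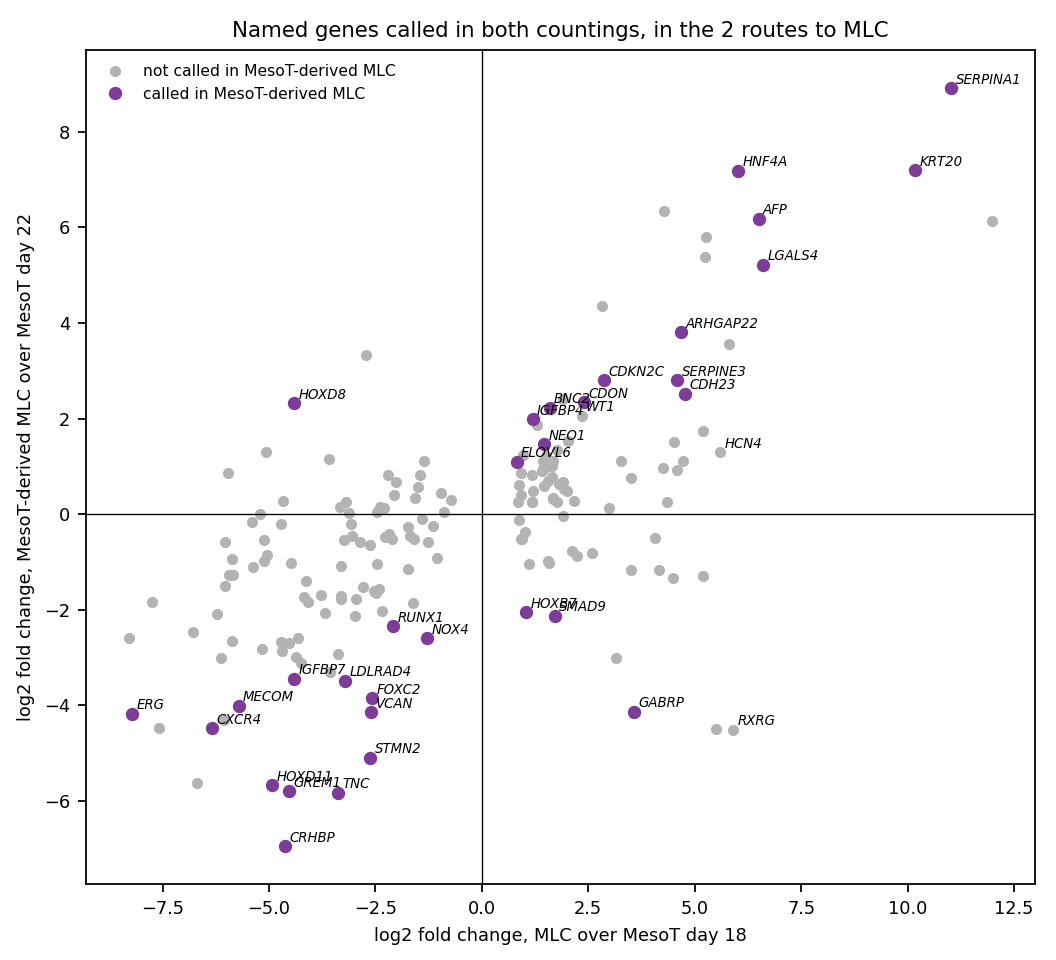
Log2 fold changes of the named genes that were called in both countings, with MLC over MesoT day 18 on the horizontal axis, MLC made from MesoT over MesoT day 22 on the vertical axis, and genes called on the vertical axis in colour. Of the genes that were higher in direct MLC 63 of 85 were above 0 on the vertical axis, and of those that were lower 77 of 100 were below it. On the vertical axis 14 of the 85 were called higher and 3 lower. Of the 100, 14 were called lower and 1 higher. The named genes were chosen with earlier results known, and the share over all genes is not given.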

How the data were processed

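The authors deposited whole-number counts of reads per Ensembl gene. There was 1 file per library for MLC, MesoT day 18 and 3 other libraries, of MesoT passaged in serum and smooth muscle. A second table held 6 human libraries, of MesoT day 18, MesoT day 22 and MLC made from MesoT. Per the submitters' processing notes, Bowtie2 2.2.9, MACS2 2.1.1, Subread 1.4.2, featureCounts and TopHat2 2.0.13 were used across the series, with hg19 among the builds, and settings per file were not stated. Per the labels, reads were 50 or 75 bases, paired, from sequencers that are not named per sample. Total counts ran from 22549057 to 70679258 in the libraries compared, and intervals cover counting error only.

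Counts were tested with edgeR 4.0.16 (TMM scaling, filterByExpr, quasi-likelihood F test, Benjamini-Hochberg). The first fit used the 7 one-library files, the second MLC with the 6 columns of the second table over 53243 shared IDs, and the last the 6 columns alone. A gene was called where both of the first fits gave an adjusted p under 0.05 with the same sign. Standard errors are the log2 fold change over the root of F. MLC files hold 63677 IDs, against 56299 IDs for the second table. At day 18, 12672 of 22110 genes compared were counted alike, within 0.5 on the log2 scale in both replicates. Alternatives were DESeq2 1.42.0, limma 3.58.1 voom, RLE scaling, filters on low counts, thinning of MLC to the day 18 depth, subsets of genes and libraries, a replicate block and each library left out. The method was tested on simulated data.

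Named genes were the 12 highest and 12 lowest changes among called genes with an average log2 CPM of at least 3 and no overlap, up to 6 called members per list by p, the 8 factors with the smallest p in each direction and a fixed set of markers. Members and lists were chosen with earlier results of these data known. List symbols LHX1, UHRF1, ACACA and TMEM2 matched no ID. Some list members are counted but not reported by name here.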

Additional observations from a re-analysis of the deposited data

Results flagged for a closer look

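Of the named genes that were called in direct MLC, 4 were called in the opposite direction in MLC made from MesoT, and the difference between the routes was not tested. SMAD9 had a log2 fold change of -2.12 in MLC made from MesoT against MesoT day 22, while it was 1.71 in direct MLC against MesoT day 18. HOXD8 had 2.32 on the MesoT route and -4.41 on the direct route. GABRP had -4.13 on the MesoT route and 3.57 on the direct route. HOXB7 had -2.05 on the MesoT route and 1.04 on the direct route. The edgeR adjusted p on the MesoT route was 0.0374, 0.0374, 0.0498 and 0.0378, and each of these calls ended when any 1 of the 4 libraries of that route was left out.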

How the results depend on the processing

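The count of 5666 genes in the one-library files fell to 1815 when genes averaging under 1 on the log2 CPM scale were dropped, and to 987 among the 12667 genes counted alike, where fewer genes were tested. It ran from 1714 to 6601 with 1 library left out, and the count of 11070 with the second table was 3236 with the filter on log2 CPM and ran from 7214 to 10663. For the MesoT route the 612 genes became 3538 with DESeq2, 1120 with a replicate block and 0 with any 1 library left out; the cause was not tested. The labels do not say whether replicate numbers mark a shared batch. Same-numbered deviations correlated at 0.073, which does not settle this with 2 libraries per group. The replicate block gave 4652 and 11244 genes for the direct comparison. No named gene that was called changed sign under these alternatives. With the second table the sign was the same by the rule for a call, so that agreement is no check. COL1A1, not called, ran from -0.63 without MesoT day 18 replicate 2 to 1.58 without replicate 1, and UPK1B, outside the named set, passed with opposite signs in the countings. Of 187 called named genes, 133 and 131 lost the call without MLC replicate 1 or 2, and 31 and 24 without MesoT day 18 replicate 1 or 2. The signed shift of log2 fold changes had a median of -0.16 with the filter on log2 CPM and -0.15 with restriction to genes counted alike. Depth limits genes at 0 to 3 counts in a group, for which a bound or a ratio is given.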
